A study of Drosophila melanogaster with 11 samples.

Results

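The larval fat bodies of MU12 and MU14, 2 isofemale strains of Drosophila melanogaster from a German (MU) population, were compared by poly-A RNA-seq. The comparison used the 5 libraries that the labels assign to these strains, 2 of MU12 and 3 of MU14, out of 11 libraries from 5 strains. Such a strain is bred from 1 female caught in the wild, so each group samples 1 wild genotype and not a population. Every library came from a separate pool of fat bodies, dissected from untreated female larvae in the late wandering stage of the third instar, after staging at 25 °C with 250 first instar larvae per vial. The strains MU10, MU17 and MU26, with 2 libraries each, were collected the same way and entered the estimate of the spread between replicates. The comparison addresses how far expression differs between 2 strains of 1 population at this stage.

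The fat body of the fly larva combines functions of the vertebrate liver and adipose tissue. It takes up sugar and amino acids from the haemolymph, stores glycogen and triglyceride, makes the hexamerin storage proteins that feed the pupa, secretes growth signals and immune peptides, and expresses enzymes of detoxification. In the wandering stage the larva has stopped feeding and rising ecdysone turns the tissue from growth to the secretion and later re-uptake of storage proteins.

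Values are given as normalised read counts (CPM, the counts of a gene scaled to a common library size after TMM normalisation) in order of replicate number, and differences are log2 differences of MU12 minus MU14 with their standard error (SE). A gene is called when its adjusted p is under 0.05 in edgeR's quasi-likelihood test across all 8415 tested genes. Only called genes are described as higher or lower. Total counts of the 5 libraries ranged from 35780347 to 39878246. Hexamerin and other fat body genes led the profiles, and of the 11 fat body markers all were tested. In bulk samples of this kind, fewer cells of a type and less RNA per cell cannot be told apart.

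Of the 8415 tested genes 2234 were called, which is 26.5%, and they were split evenly between the strains, with 1114 (13.2%) higher in MU12 and 1120 (13.3%) higher in MU14. The median size of a called difference was 0.95 on the log2 scale, with a 10th percentile of 0.42 and a 90th percentile of 2.62. Differences of at least 8-fold were found for 108 genes higher in MU12 and 60 genes higher in MU14. Of the 200 most abundant genes 92 were called, 21 higher in MU12 and 71 higher in MU14. Of the upper abundance tercile over all 11 libraries 30.1% were called, 420 higher in MU12 and 425 in MU14. The middle tercile had 24.7% and the lower 24.8%. On the chromosome arms the called share lay between 21.1% on chromosome 4 and 30.5% on 2L. With upper-quartile scaling the share of calls that were higher in MU12 was 37.8% instead of 49.9%, and the median difference over all tested genes was -0.09 instead of 0.02.

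The 5 libraries separated by strain. Euclidean distances between log2 CPM profiles were 90.5 to 106 between strains, 39.4 to 46.1 among the MU14 libraries and 57.0 between the MU12 libraries. The MU12 libraries differed from each other more than any pair of MU14 libraries did. Leaving out MU12 replicate 2 reduced the calls to 1355 and leaving out MU14 replicate 1 reduced them to 1468. No gene called in the full comparison changed its direction when a library was left out. The libraries of the 2 strains did not overlap in 4564 of the 8415 tested genes and in 2232 of the 2234 called genes. Absence of overlap is therefore the rule in called genes and adds little to a call.

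**Figure D1:**
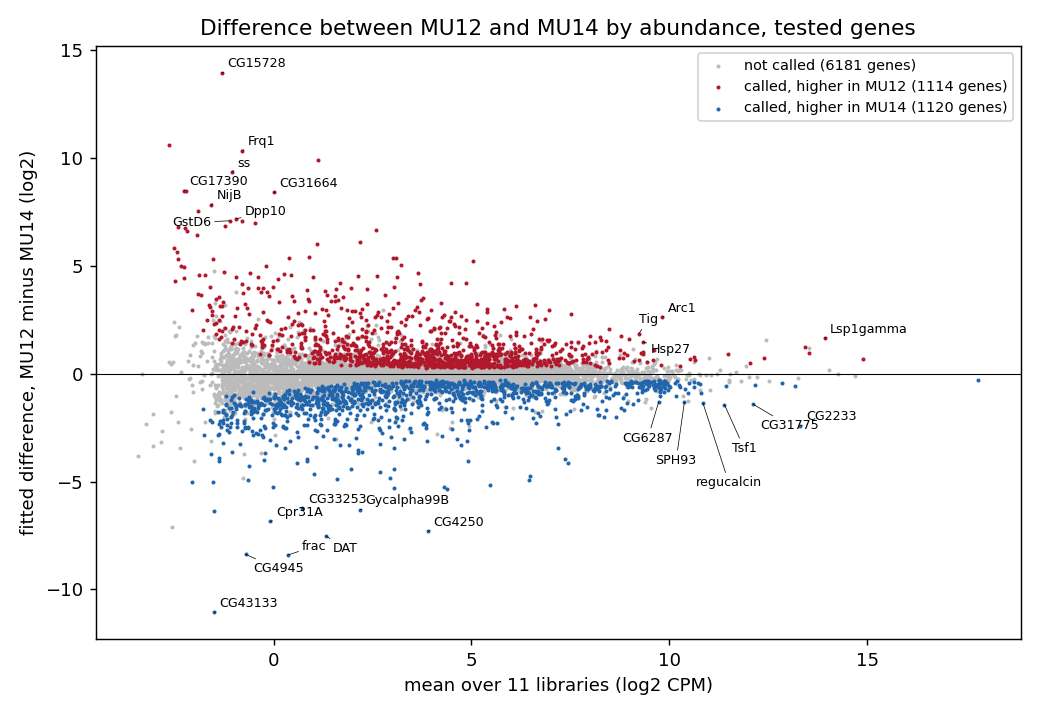
Each point is 1 of the 8415 tested genes, with its mean abundance over the 11 libraries on the x axis (log2 CPM) and the fitted log2 difference, MU12 minus MU14, on the y axis. Red points (1114 genes) were called higher in MU12, blue points (1120) higher in MU14 and grey points were not called, and names mark the genes with the widest differences and the abundant genes described in the text.

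The widest differences were close to on and off. They were taken among called genes with a mean of at least 10 CPM in the higher strain, 8 in each direction. CG15728 (FBgn0030409, chromosome X, 12624292 to 12628445), a gene without a known function, had 558 and 607 CPM in MU12 and 0.0266, 0.0246 and 0.0486 CPM in MU14 (log2 difference 13.96 ± 0.30 SE, edgeR adjusted p = 4.3e-08). The 6 libraries of the other strains were as low as those of MU14, with 0 to 0.0432 CPM. CG15728 overlaps Aven on the other strand. The counting is not stated to use strand, and read pairs that fitted more than 1 gene were discarded. How reads of the stretch shared with Aven were assigned is therefore uncertain. The neuronal calcium sensor gene Frq1 (chromosome X, 18155369 to 18174744) had 104 and 189 CPM in MU12 and 0.106, 0.172 and 0.0486 CPM in MU14 (log2 difference 10.35 ± 0.48 SE, edgeR adjusted p = 4.8e-06), and 0.0347 to 0.238 CPM in the other strains.

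The transcription factor gene ss (chromosome 3R, 16374434 to 16403690), spineless, encodes the fly homologue of the aryl hydrocarbon receptor and is known for specifying antennal and leg segments. Its level was 98.2 and 93.2 CPM in MU12 and 0.239, 0.0246 and 0.170 CPM in MU14 (log2 difference 9.36 ± 0.45 SE, edgeR adjusted p = 6.3e-06). In the other strains it was 0.0347 to 0.253 CPM, so that MU12 alone stood apart. Its dimerisation partner tgo had 11.4 and 12.5 CPM in MU12 and 12.1, 10.6 and 11.7 CPM in MU14 (log2 difference 0.06 ± 0.10 SE, edgeR adjusted p = 0.69) and was not called.

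Among the remaining genes of this kind, NijB (chromosome 3L, 18892383 to 18893278), a member of the ninjurin family of cell surface proteins, had 18.2 and 18.0 CPM in MU12 and 0.133, 0.0982 and 0 CPM in MU14 (log2 difference 7.84 ± 0.49 SE, edgeR adjusted p = 3.2e-05). NijB overlaps CG3902 on the opposite strand, and the assignment of reads in the shared stretch is uncertain. Dpp10 (chromosome 2L, 6568400 to 6601068), a gene of the dipeptidyl peptidase family, had 33.2 and 40.7 CPM in MU12 and 0.266, 0.295 and 0.194 CPM in MU14 (log2 difference 7.18 ± 0.25 SE, edgeR adjusted p = 1.3e-06). GstD6 (chromosome 3R, 12377128 to 12377907), a glutathione transferase of the delta cluster, had 9.25 and 16.9 CPM in MU12 and 0.133, 0 and 0.146 CPM in MU14 (log2 difference 7.10 ± 0.77 SE, edgeR adjusted p = 0.00054). In all 3 genes the lower MU12 library was far above the highest MU14 library. The other strains had 0.0634 to 1.01 CPM for GstD6, 0.0458 to 0.194 CPM for NijB and 0.0317 to 0.297 CPM for Dpp10. CG31664 (chromosome 2L, 1824172 to 1826500) had 11.3 and 25.0 CPM in MU12 and 0.0266, 0.0491 and 0.0729 CPM in MU14 (log2 difference 8.41 ± 1.03 SE, edgeR adjusted p = 0.00088), while the other strains lay in between with 0.509 to 3 CPM. For CG17390, on chromosome 2R, 787 counts in MU12 stood against 3 in MU14, a ratio of 394.8 with a 95% counting interval of 134.6 to 1919.

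In the opposite direction CG43133 (chromosome X, 18129585 to 18130178) had 4062 counts over the MU14 libraries and 1 count over the MU12 libraries, a ratio of 2699 with a 95% counting interval of 484.1 to 106600.0. These intervals cover counting error only. CG43133 and Frq1 lie 25.2 kb apart on the X chromosome and differed in opposite directions. DAT (chromosome 2R, 16558567 to 16565238), the dopamine transporter gene, had 0.822 and 0.978 CPM in MU12 and 162, 131 and 206 CPM in MU14 (log2 difference -7.53 ± 0.31 SE, edgeR adjusted p = 3.0e-06). Its neighbour CG4945 (chromosome 2R, 16566023 to 16570120) starts 784 bases away on the opposite strand and had 0.0704 and 0.0815 CPM in MU12 and 25.5, 20.8 and 32.5 CPM in MU14 (log2 difference -8.38 ± 0.55 SE, edgeR adjusted p = 3.9e-05). The pair was low in all other libraries, with 0.275 to 0.659 CPM for DAT and 0.0588 to 0.318 CPM for CG4945. RpS15 overlaps CG4945 on the opposite strand.

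The gene frac, faulty attraction (chromosome 3L, 7562610 to 7569499), had 0.305 and 0.244 CPM in MU12 and 69.5, 92.1 and 125 CPM in MU14 (log2 difference -8.41 ± 0.35 SE, edgeR adjusted p = 3.0e-06). Gycalpha99B (chromosome 3R, 29682503 to 29685758), the alpha subunit of the nitric oxide receptor guanylyl cyclase, had 0.751 and 0.679 CPM in MU12 and 67.1, 47.7 and 55.9 CPM in MU14 (log2 difference -6.31 ± 0.39 SE, edgeR adjusted p = 2.8e-05). It overlaps Obp99c on the opposite strand, and the assignment of reads in the shared stretch is uncertain here too. The other strains had 0.0432 to 0.475 CPM for frac and 0.626 to 4.75 CPM for Gycalpha99B. Cpr31A belongs to a family of chitin-binding cuticular proteins. Cpr31A (chromosome 2L, 10054213 to 10055935) had 0.376 and 0.380 CPM in MU12 and 39.0, 36.3 and 56.6 CPM in MU14 (log2 difference -6.85 ± 0.48 SE, edgeR adjusted p = 5.0e-05). CG33253 (chromosome X, 19183421 to 19187278) had 0.751 and 0.407 CPM in MU12 and 46.1, 36.0 and 52.6 CPM in MU14 (log2 difference -6.25 ± 0.55 SE, edgeR adjusted p = 0.00018). In these genes MU14 stood alone among the 5 strains. CG4250 (chromosome 2R, 22663692 to 22664474) was the reverse case, since MU12 was the strain apart. Its values were 0.117 and 0.217 CPM in MU12 and 25.4, 24.8 and 29.0 CPM in MU14 (log2 difference -7.30 ± 1.21 SE, edgeR adjusted p = 0.0034), and the other strains had 17.7 to 214 CPM. The CG4250 call was lost in limma-voom (adjusted p = 0.11).

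**Figure D2:**
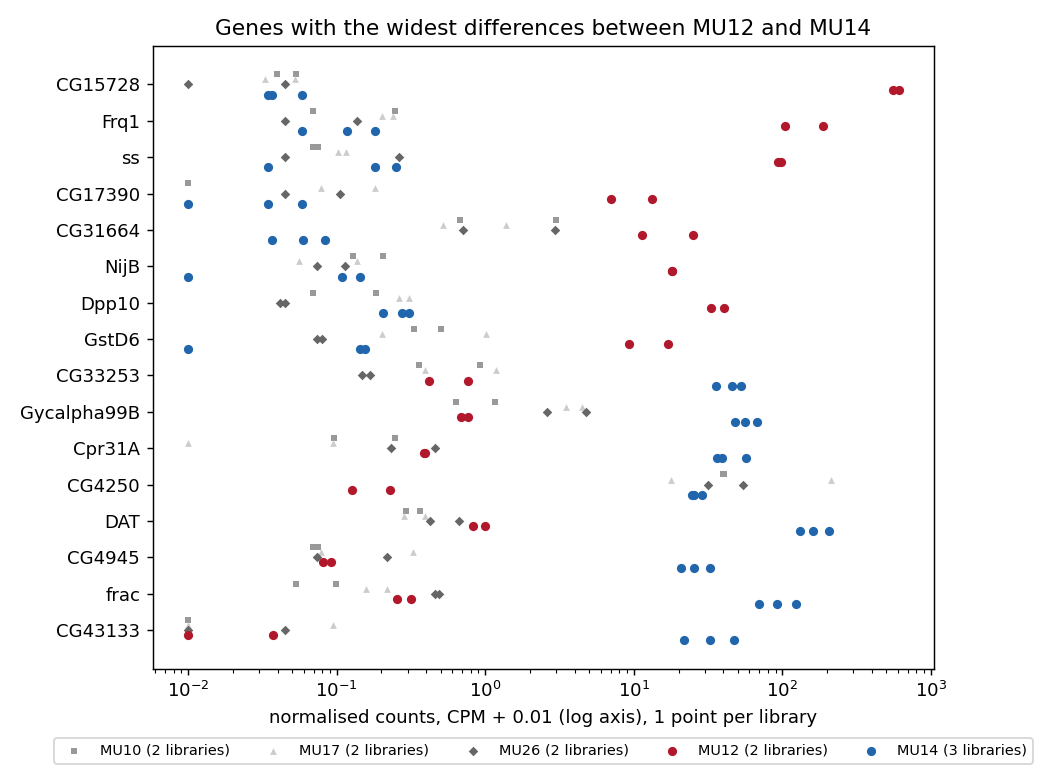
Normalised counts of the 16 genes with the widest differences, 1 point per library, on a log axis of CPM + 0.01, with MU12 in red, MU14 in blue and the other strains in grey. For 8 genes the MU12 libraries stand to the right of all MU14 libraries, and for 8 genes the MU14 libraries do; for CG4250 the grey points lie at the MU14 level or above, and for most other genes at or near the lower strain.

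The storage protein genes are among the most abundant transcripts of this tissue. In this group 2 of 6 tested members were higher in MU12 and 1 in MU14, with a median log2 difference of 0.95. Lsp2, a hexamerin of the last larval instar, had 43589 and 45658 CPM in MU12 and 26278, 27962 and 28295 CPM in MU14 (log2 difference 0.70 ± 0.11 SE, edgeR adjusted p = 0.0033). Lsp1gamma (chromosome 3L, 66430 to 68995), a subunit of larval serum protein 1, had 21845 and 45154 CPM in MU12 and 9621, 11011 and 11147 CPM in MU14 (log2 difference 1.66 ± 0.45 SE, edgeR adjusted p = 0.026). MU12 replicate 2 was the higher library, and MU12 replicate 1 lay nearer to MU14. The Lsp1gamma call was lost without MU12 replicate 2 or any MU14 library (adjusted p from 0.064 to 0.20). The other subunits were not called in edgeR, although MU12 replicate 2 was again the highest library, with 8605 and 20759 CPM in MU12 and 4551, 4405 and 6006 CPM in MU14 for Lsp1alpha and 8851 and 25454 CPM in MU12 and 6965, 6877 and 8409 CPM in MU14 for Lsp1beta. Lsp1alpha was called in DESeq2 (1.56, adjusted p = 0.028) and with only the 5 libraries fitted (1.56, adjusted p = 0.034). Fbp1, the receptor for hexamerin uptake, was lower in MU12, with 187973 and 160899 CPM in MU12 and 223038, 206629 and 217608 CPM in MU14 (log2 difference -0.31 ± 0.09 SE, edgeR adjusted p = 0.044). The Fbp1 call was lost without MU12 replicate 2 or any MU14 library, with no filter, with the filterByExpr filter and with only the 5 libraries fitted (adjusted p from 0.071 to 0.19). Fbp2 was at 23836 and 24752 CPM in MU12 and 28539, 25051 and 24955 CPM in MU14 and was not called. For storage proteins, the counts in MU12 and MU14 were 1 and 0 without MU12 replicate 2 or any MU14 library. With 1 library left out, the median ranged from 0.44 (without MU12 replicate 2) to 1.25 (without MU12 replicate 1) for storage proteins.

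Other abundant genes moved further. Arc1 (chromosome 2R, 14357927 to 14360297), which encodes a retrotransposon-derived capsid protein, had 5792 and 3655 CPM in MU12 and 811, 733 and 751 CPM in MU14 (log2 difference 2.63 ± 0.24 SE, edgeR adjusted p = 0.00020). Its paralogue Arc2 had 33.2 and 24.2 CPM in MU12 and 9.02, 8.495 and 11.8 CPM in MU14 (log2 difference 1.55 ± 0.20 SE, edgeR adjusted p = 0.0010). Tig (chromosome 2L, 6415179 to 6423310), the integrin ligand tiggrin of the extracellular matrix, had 1053 and 1598 CPM in MU12 and 225, 406 and 463 CPM in MU14 (log2 difference 1.86 ± 0.31 SE, edgeR adjusted p = 0.0035). It shares its position with CG13982 on the opposite strand. Higher in MU14 were CG2233 (chromosome X, 8035741 to 8037517), of unknown function, with 2742 and 3547 CPM in MU12 and 16103, 15648 and 18374 CPM in MU14 (log2 difference -2.41 ± 0.22 SE, edgeR adjusted p = 0.00020), and CG31775 (chromosome 2L, 14737090 to 14737769) with 1471 and 2056 CPM in MU12 and 3966, 5683 and 4434 CPM in MU14 (log2 difference -1.41 ± 0.18 SE, edgeR adjusted p = 0.0012).

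The calcium-binding protein gene regucalcin (chromosome X, 12012377 to 12017375), which overlaps Chrac-16 on the opposite strand, had 674 and 1275 CPM in MU12 and 2290.0, 2720.0 and 2502 CPM in MU14 (log2 difference -1.36 ± 0.28 SE, edgeR adjusted p = 0.0088). CG6287 (chromosome 2L, 11151506 to 11155721), the fly orthologue of the serine synthesis enzyme phosphoglycerate dehydrogenase, had 518 and 532 CPM in MU12 and 1393, 1218 and 1284 CPM in MU14 (log2 difference -1.31 ± 0.23 SE, edgeR adjusted p = 0.0043). SPH93 (chromosome 2L, 17454263 to 17455923), a serine protease homologue without catalytic activity, had 571 and 461 CPM in MU12 and 1393, 1004 and 1487 CPM in MU14 (log2 difference -1.33 ± 0.40 SE, edgeR adjusted p = 0.040). The SPH93 call was lost without any 1 of the 5 libraries (adjusted p from 0.051 to 0.17). SPH93 overlaps CG5050 on the opposite strand. In regucalcin, CG6287 and SPH93 the MU12 and MU14 libraries did not overlap, as in nearly all called genes.

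Genes of sugar metabolism were higher in MU12 at many steps. Glycolysis splits glucose to pyruvate, and the fat body also builds and breaks down glycogen and feeds glucose into trehalose, the blood sugar of insects. Of glycolysis 7 of 13 tested members were higher in MU12 and 0 in MU14, with a median log2 difference of 1.14, and of glycogen and trehalose metabolism 7 of 11 tested members were higher in MU12 and 1 in MU14, with a median log2 difference of 0.67. Without MU12 replicate 2 the counts in glycolysis were 6 and 1. The 1 member higher in MU14 was the trehalose transporter gene Tret1-2, with 3.08 and 3.07 CPM in MU12 and 3.46, 4.71 and 5.34 CPM in MU14 (log2 difference -0.55 ± 0.17 SE, edgeR adjusted p = 0.047). The Tret1-2 call was lost without MU12 replicates 1 or 2 or MU14 replicates 2 or 3, with no filter, with the filterByExpr filter, in limma-voom and with only the 5 libraries fitted (adjusted p from 0.051 to 0.14). No list was tested as a whole, and the background is the 26.5% of all genes that were called. For glycogen and trehalose, the counts in MU12 and MU14 were 5 and 0 without MU12 replicates 1 or 2 or MU14 replicate 2 and 4 and 1 without MU14 replicate 1. The median with 1 library left out ranged from 0.69 (without MU12 replicate 2) to 1.16 (without MU12 replicate 1) for glycolysis and from 0.59 (without MU12 replicate 2) to 1.10 (without MU12 replicate 1) for glycogen and trehalose.

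Pfk, which catalyses the committed step of glycolysis, had 32.1 and 51.2 CPM in MU12 and 11.2, 8.08 and 14.5 CPM in MU14 (log2 difference 1.89 ± 0.27 SE, edgeR adjusted p = 0.0018). Pgi, the isomerase just before it, had 168 and 276 CPM in MU12 and 61.5, 82.8 and 84.5 CPM in MU14 (log2 difference 1.54 ± 0.27 SE, edgeR adjusted p = 0.0040). Gapdh2, a glyceraldehyde phosphate dehydrogenase, had 371 and 528 CPM in MU12 and 169.9, 149 and 185 CPM in MU14 (log2 difference 1.42 ± 0.19 SE, edgeR adjusted p = 0.0013). In all 3 genes MU12 replicate 2 was the highest library and no MU14 library reached the lower MU12 library. Further along the pathway, Pgk (phosphoglycerate kinase) had 138 and 188 CPM in MU12 and 73.9, 72.8 and 75.5 CPM in MU14 (log2 difference 1.14 ± 0.15 SE, edgeR adjusted p = 0.0013). Pglym78 (phosphoglycerate mutase) had 56.8 and 87.0 CPM in MU12 and 28.9, 32.3 and 33.1 CPM in MU14 (log2 difference 1.19 ± 0.18 SE, edgeR adjusted p = 0.0021). Tpi and Eno were also called, with log2 differences of 1.15 ± 0.33 SE and 0.80 ± 0.20 SE (edgeR adjusted p = 0.033 and 0.019). Calls were lost for Tpi without MU12 replicate 2 or any MU14 library, for Eno without MU12 replicate 2 or MU14 replicates 1 or 2 (adjusted p from 0.060 to 0.24). Steps at either end were not called in edgeR, among them the hexokinase genes Hex-A (97.9 and 294 CPM in MU12 and 89.97, 85.5 and 217 CPM in MU14) and Hex-C (20.97 and 6.003 CPM in MU12 and 5.72, 5.55 and 4.83 CPM in MU14) and pyruvate kinase PyK (71.7 and 52.6 CPM in MU12 and 73.1, 53.6 and 67.1 CPM in MU14). Aldolase Ald1, a step between Pfk and Tpi, was not called either (391 and 688 CPM in MU12 and 847, 703 and 925 CPM in MU14). Hex-C was called in DESeq2 (1.32, adjusted p = 0.016) and without MU12 replicate 2 (1.95, adjusted p = 0.0052). Ald1 was called without MU12 replicate 2 (-1.09, adjusted p = 0.043). Ldh, lactate dehydrogenase, was near 1 CPM or below in all 5 libraries. Gluconeogenesis had no call, since 0 of 4 tested members were higher in MU12 and 0 in MU14, with a median log2 difference of 0.28 (2 at an unadjusted edgeR p under 0.05, 0 in DESeq2 and 0 in limma-voom). Its main enzyme genes were Pepck1 with 1205 and 1635 CPM in MU12 and 2741, 1794 and 2567 CPM in MU14 and Pepck2 with 1785 and 2148 CPM in MU12 and 1301, 1221 and 1519 CPM in MU14. Pepck2 was called with only the 5 libraries fitted (0.55, adjusted p = 0.049). For gluconeogenesis, the counts in MU12 and MU14 were 1 and 0 with only the 5 libraries fitted. Without 1 library the median ran from -0.17 (without MU12 replicate 2) to 0.48 (without MU12 replicate 1) for gluconeogenesis.

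Transcripts of enzymes that build and that break down glycogen were higher in MU12. Glyp, glycogen phosphorylase, which releases glucose phosphate from glycogen, had 76.3 and 129.7 CPM in MU12 and 21.5, 31.0 and 35.6 CPM in MU14 (log2 difference 1.81 ± 0.28 SE, edgeR adjusted p = 0.0025). Glys, glycogen synthase, had 16.9 and 29.7 CPM in MU12 and 8.09, 7.78 and 9.23 CPM in MU14 (log2 difference 1.48 ± 0.25 SE, edgeR adjusted p = 0.0036). Gyg, glycogenin, which primes glycogen chains, had 6.90 and 7.88 CPM in MU12 and 2.34, 2.50 and 2.99 CPM in MU14 (log2 difference 1.499 ± 0.22 SE, edgeR adjusted p = 0.0018). Treh encodes trehalase, which splits trehalose into glucose. Its level was 58.8 and 93.3 CPM in MU12 and 14.4, 24.8 and 22.3 CPM in MU14 (log2 difference 1.89 ± 0.36 SE, edgeR adjusted p = 0.0059). For each of these 4 genes the lower MU12 library exceeded the highest MU14 library. Smaller differences were found for Pgm1 (0.85 ± 0.21 SE, edgeR adjusted p = 0.018), UGP (0.67 ± 0.21 SE, edgeR adjusted p = 0.045) and Pgm2a (0.61 ± 0.20 SE, edgeR adjusted p = 0.04997), which convert sugar phosphates. The call was lost for Pgm1 without MU12 replicate 2 or MU14 replicate 1, for UGP without MU12 replicates 1 or 2 or MU14 replicates 1 or 2 and with upper-quartile scaling, for Pgm2a without MU12 replicate 1 or any MU14 library, with upper-quartile scaling, with no filter, in limma-voom and with only the 5 libraries fitted (adjusted p from 0.058 to 0.40). In the pentose phosphate pathway and other sources of NADPH 2 of 7 tested members were higher in MU12 and 0 in MU14, with a median log2 difference of 0.34. CG8036, a transketolase gene, had 117 and 244 CPM in MU12 and 46.1, 64.3 and 48.4 CPM in MU14 (log2 difference 1.77 ± 0.33 SE, edgeR adjusted p = 0.0058). Pgd, phosphogluconate dehydrogenase, had 50.7 and 80.6 CPM in MU12 and 36.1, 31.1 and 36.3 CPM in MU14 (log2 difference 0.93 ± 0.23 SE, edgeR adjusted p = 0.019). The Pgd call was lost without MU12 replicate 2 or MU14 replicate 2 (adjusted p from 0.062 to 0.15). For pentose phosphate and NADPH, the counts in MU12 and MU14 were 3 and 1 in DESeq2 and 1 and 0 without MU12 replicate 2 or MU14 replicate 2. When 1 library was left out the median ranged from 0.20 (without MU12 replicate 2) to 0.87 (without MU12 replicate 1) for pentose phosphate and NADPH.

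Within amino acid and one-carbon metabolism, the widest calls were 4 genes of the methionine cycle and glycine turnover, all higher in MU12. Sam-S makes S-adenosylmethionine, the methyl donor of the cell, and Gnmt spends it on glycine to make sarcosine, which Sardh returns to glycine. Gnmt had 124 and 238 CPM in MU12 and 21.3, 42.1 and 38.0 CPM in MU14 (log2 difference 2.42 ± 0.35 SE, edgeR adjusted p = 0.0019). Sardh had 152 and 262 CPM in MU12 and 31.3, 51.6 and 64.4 CPM in MU14 (log2 difference 2.08 ± 0.31 SE, edgeR adjusted p = 0.0021). Sam-S had 197 and 347 CPM in MU12 and 63.1, 107 and 98.3 CPM in MU14 (log2 difference 1.60 ± 0.29 SE, edgeR adjusted p = 0.0048). Cbs passes homocysteine on to cysteine synthesis. It had 5.21 and 4.67 CPM in MU12 and 1.22, 2.28 and 1.41 CPM in MU14 (log2 difference 1.59 ± 0.28 SE, edgeR adjusted p = 0.0043). MU12 replicate 2 was the highest library for Gnmt, Sardh and Sam-S, and MU14 replicate 1 the lowest for all 4. Over amino acid and one-carbon metabolism 5 of 19 tested members were higher in MU12 and 2 in MU14, with a median log2 difference of 0.35. Oat, ornithine aminotransferase, was the fifth gene higher in MU12, with 2364 and 1869 CPM in MU12 and 1384, 1168 and 1201 CPM in MU14 (log2 difference 0.76 ± 0.19 SE, edgeR adjusted p = 0.018). The Oat call was lost without MU12 replicate 1 or MU14 replicates 2 or 3 (adjusted p from 0.054 to 0.11). The genes higher in MU14 were Gs2, a glutamine synthetase (-1.45 ± 0.46 SE, edgeR adjusted p = 0.048), and slgA, proline dehydrogenase (-1.18 ± 0.32 SE, edgeR adjusted p = 0.025). The threshold was missed for Gs2 without any 1 of the 5 libraries, for slgA without MU12 replicates 1 or 2 or MU14 replicates 1 or 2 and with only the 5 libraries fitted (adjusted p from 0.05004 to 0.17). For amino acid and one-carbon metabolism, the counts in MU12 and MU14 were 5 and 0 without MU12 replicate 2 or MU14 replicate 1 and 4 and 0 without MU14 replicate 2. Across the fits without 1 library the median ran from 0.22 (without MU12 replicate 2) to 0.51 (without MU14 replicate 3) for amino acid and one-carbon metabolism.

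Lipid synthesis did not move as a block. Fatty acids are made from citrate by ATPCL, ACC and FASN1 in turn, and Desat1 inserts the first double bond. FASN1, fatty acid synthase, had 119.8 and 136 CPM in MU12 and 379, 533 and 545 CPM in MU14 (log2 difference -1.92 ± 0.23 SE, edgeR adjusted p = 0.00086). Desat1 had 57.2 and 131 CPM in MU12 and 422, 321 and 384 CPM in MU14 (log2 difference -1.99 ± 0.32 SE, edgeR adjusted p = 0.0029). Both were lower in MU12 with no overlap between strains. ATPCL, the first step of the same pathway, was higher in MU12, with 65.7 and 121 CPM in MU12 and 33.6, 38.5 and 35.2 CPM in MU14 (log2 difference 1.38 ± 0.27 SE, edgeR adjusted p = 0.0074). The ATPCL call was lost without MU12 replicate 2 (adjusted p = 0.056). ACC (16.3 and 26.5 CPM in MU12 and 20.4, 24.7 and 21.7 CPM in MU14) and the regulator SREBP (110.4 and 143 CPM in MU12 and 105, 107 and 122 CPM in MU14) were not called. In fatty acid synthesis 1 of 14 tested members was higher in MU12 and 2 in MU14, with a median log2 difference of -0.21. With 1 library left out, the median ranged from -0.40 (without MU12 replicate 2) to -0.05 (without MU14 replicate 3) for fatty acid synthesis.

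Of lipid droplets, lipolysis and lipoproteins 1 of 15 tested members was higher in MU12 and 2 in MU14, with a median log2 difference of 0.29. Lsd-1, a perilipin that coats lipid droplets, had 1083 and 717 CPM in MU12 and 1601, 1875 and 1554 CPM in MU14 (log2 difference -0.90 ± 0.19 SE, edgeR adjusted p = 0.011). The Lsd-1 call was lost without MU12 replicate 2 (adjusted p = 0.054). Lpin, the phosphatidate phosphatase lipin, had 246 and 350.1 CPM in MU12 and 104, 115 and 125 CPM in MU14 (log2 difference 1.38 ± 0.31 SE, edgeR adjusted p = 0.012). The Lpin call was lost without MU12 replicate 2 (adjusted p = 0.081). Agpat3, an acyltransferase of glycerolipid synthesis, was also called (-0.43 ± 0.13 SE, edgeR adjusted p = 0.042). The Agpat3 call was lost without MU12 replicates 1 or 2 or MU14 replicates 2 or 3, with no filter and with only the 5 libraries fitted (adjusted p from 0.065 to 0.14). The second perilipin Lsd-2 (757 and 633 CPM in MU12 and 468, 542 and 490.4 CPM in MU14) and the lipase bmm (104 and 97.9 CPM in MU12 and 59.7, 65.5 and 94.8 CPM in MU14) were not called in edgeR. Lsd-2 was called in DESeq2 (0.47, adjusted p = 0.032). In fatty acid oxidation 0 of 14 tested members were higher in MU12 and 1 in MU14, with a median log2 difference of -0.21. The called gene was Acox57D-p, a peroxisomal acyl-CoA oxidase, with 4.13 and 7.85 CPM in MU12 and 61.1, 50.2 and 64.3 CPM in MU14 (log2 difference -3.29 ± 0.44 SE, edgeR adjusted p = 0.0012). The other 13 members were not called. For lipid droplets, lipolysis and lipoproteins, the counts in MU12 and MU14 were 4 and 2 in DESeq2 and 0 and 0 without MU12 replicate 2. For fatty acid oxidation, the counts in MU12 and MU14 were 0 and 2 with only the 5 libraries fitted. The median with 1 library left out ranged from 0.12 (without MU12 replicate 2) to 0.33 (without MU12 replicate 1) for lipid droplets, lipolysis and lipoproteins and from -0.34 (without MU12 replicate 2) to 0.01 (without MU12 replicate 1) for fatty acid oxidation.

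**Figure D3:**
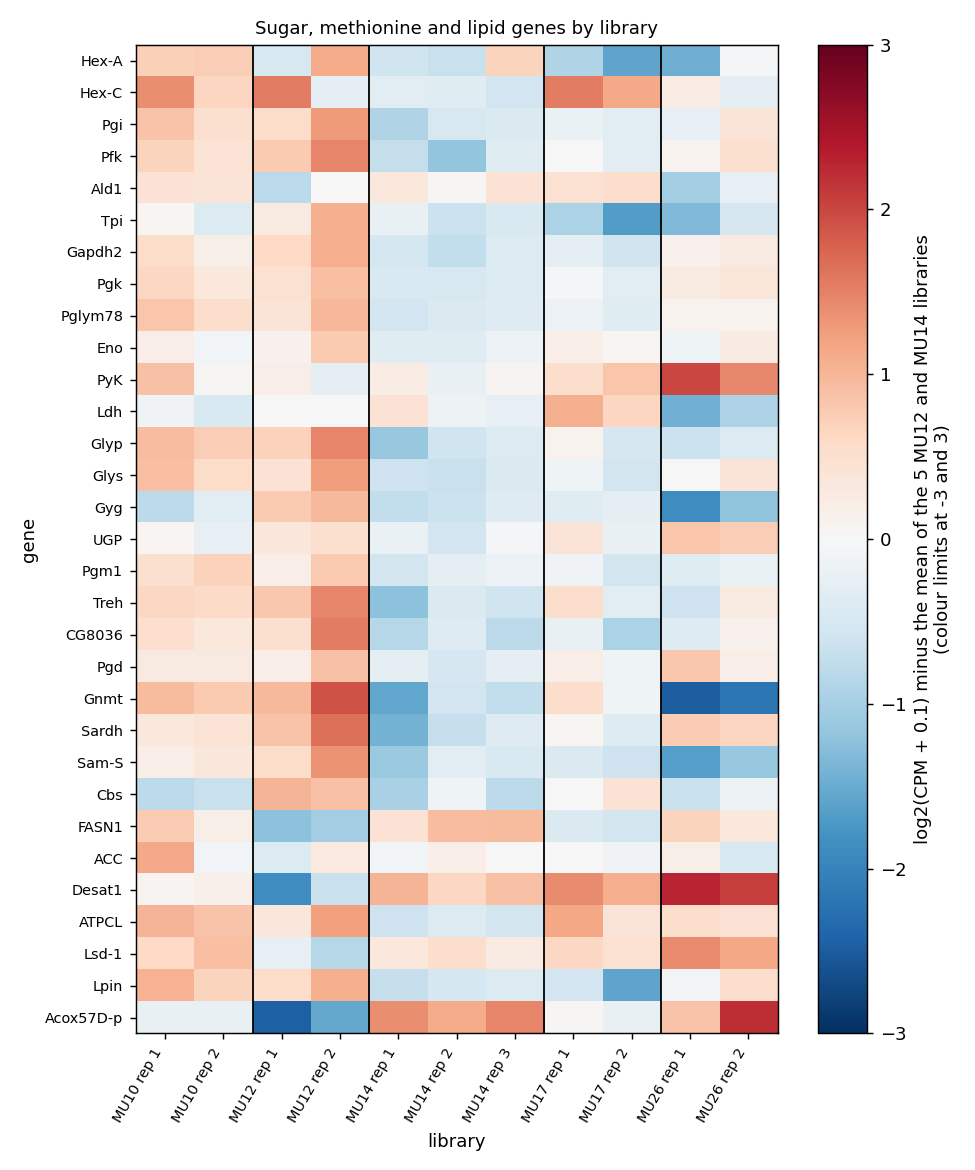
Heat map of sugar, methionine and lipid genes (rows) in the 11 libraries (columns, in strain order), as log2(CPM + 0.1) minus the mean of the 5 MU12 and MU14 libraries, with colours limited to -3 and 3. The MU12 columns are red and the MU14 columns blue for Pgi, Pfk, Gapdh2, Pgk, Pglym78, Glyp, Glys, Gyg, Treh and the methionine cycle genes, and the order is reversed for FASN1, Desat1 and Acox57D-p.

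Myc, the transcription factor that drives ribosome production and growth of larval tissues, had 4.02 and 4.43 CPM in MU12 and 11.5, 10.7 and 12.1 CPM in MU14 (log2 difference -1.44 ± 0.19 SE, edgeR adjusted p = 0.0012). Its partner Max (7.19 and 6.22 CPM in MU12 and 8.96, 7.54 and 9.45 CPM in MU14) and its antagonist Mnt (43.5 and 97.2 CPM in MU12 and 83.5, 54.7 and 68.1 CPM in MU14) were not called, so that in the Myc network 0 of 3 tested members were higher in MU12 and 1 in MU14, with a median log2 difference of -0.37. In ribosome biogenesis 2 of 34 tested members were higher in MU12 and 8 in MU14, with a median log2 difference of -0.55. The called share, 29.4%, was close to the 26.5% over all genes. For ribosome biogenesis, the counts in MU12 and MU14 were 2 and 4 without MU12 replicate 2. Fib, the nucleolar RNA methyltransferase fibrillarin, had 2.91 and 3.37 CPM in MU12 and 8.09, 7.73 and 5.76 CPM in MU14 (log2 difference -1.20 ± 0.24 SE, edgeR adjusted p = 0.0075). Ns2, a nucleostemin-like GTPase, had 9.65 and 8.47 CPM in MU12 and 19.3, 19.0 and 20.8 CPM in MU14 (log2 difference -1.12 ± 0.13 SE, edgeR adjusted p = 0.00080). Non1, a GTPase of the large ribosomal subunit, had 106 and 99.3 CPM in MU12 and 216, 237 and 235 CPM in MU14 (log2 difference -1.16 ± 0.15 SE, edgeR adjusted p = 0.0012). CG8545 is a homologue of the rRNA methyltransferase Nop2. It had 3.08 and 3.01 CPM in MU12 and 6.17, 8.72 and 7.21 CPM in MU14 (log2 difference -1.27 ± 0.24 SE, edgeR adjusted p = 0.0061). In these 4 genes every MU14 library was above both MU12 libraries. Without 1 library the median ran from -0.68 (without MU12 replicate 2) to -0.30 (without MU14 replicate 3) for Myc network.

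Further nucleolar genes lower in MU12 were nop5 (-1.18 ± 0.32 SE, edgeR adjusted p = 0.025), Nop60B (-1.12 ± 0.24 SE, edgeR adjusted p = 0.010), Nopp140 (-0.90 ± 0.21 SE, edgeR adjusted p = 0.014) and Dbp45A (-0.79 ± 0.24 SE, edgeR adjusted p = 0.042). Significance was lost for nop5 without MU12 replicates 1 or 2 or MU14 replicates 1 or 2, for Nop60B without MU12 replicate 2, for Nopp140 without MU12 replicates 1 or 2, for Dbp45A without MU12 replicates 1 or 2 or MU14 replicates 2 or 3, with no filter, in limma-voom and with only the 5 libraries fitted (adjusted p from 0.051 to 0.20). The exceptions were 2 genes higher in MU12. Polr1D, a subunit shared by RNA polymerases I and III, had 10.9 and 15.9 CPM in MU12 and 1.54, 1.33 and 1.04 CPM in MU14 (log2 difference 3.36 ± 0.25 SE, edgeR adjusted p = 6.5e-05). The factor eIF6, which keeps the large ribosomal subunit from joining the small one, had 34.6 and 27.9 CPM in MU12 and 8.43, 7.37 and 9.16 CPM in MU14 (log2 difference 1.91 ± 0.16 SE, edgeR adjusted p = 0.00015).

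Of the cytosolic ribosomal proteins 1 of 82 tested members was higher in MU12 and 52 in MU14, with a median log2 difference of -0.39. For cytosolic ribosomal proteins, the counts in MU12 and MU14 were 1 and 31 with only the 5 libraries fitted, 1 and 25 without MU12 replicate 1 and 0 and 35 without MU14 replicate 2. These are abundant transcripts with small differences and small replicate spread. RpL15 had 708 and 730.0 CPM in MU12 and 1199.8, 1272 and 1149.5 CPM in MU14 (log2 difference -0.75 ± 0.10 SE, edgeR adjusted p = 0.0011). RpS9 had 448 and 491 CPM in MU12 and 790.1, 782 and 783 CPM in MU14 (log2 difference -0.74 ± 0.09 SE, edgeR adjusted p = 0.00092). RpL8 had 606 and 718 CPM in MU12 and 1009, 1077 and 1043 CPM in MU14 (log2 difference -0.66 ± 0.10 SE, edgeR adjusted p = 0.0026). The stalk protein gene RpLP0 had 629 and 772 CPM in MU12 and 1037, 1145 and 1095 CPM in MU14 (log2 difference -0.64 ± 0.11 SE, edgeR adjusted p = 0.0041). The 1 member higher in MU12 was RpS15Ab (7.09 and 7.55 CPM in MU12 and 5.56, 4.67 and 5.03 CPM in MU14), a copy of RpS15A with far fewer counts, and read pairs that fitted more than 1 gene were discarded in the counting. The RpS15Ab call was lost without MU12 replicate 2 or MU14 replicate 2 (adjusted p from 0.061 to 0.10).

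Of the cytosolic translation factors 1 of 42 tested members was higher in MU12 and 25 in MU14, with a median log2 difference of -0.41, and the 1 higher in MU12 was eIF6. The elongation factor gene eEF1gamma had 523 and 671 CPM in MU12 and 1015, 1106 and 1141 CPM in MU14 (log2 difference -0.87 ± 0.13 SE, edgeR adjusted p = 0.0018). The abundant eEF1alpha1 had 6542 and 7225 CPM in MU12 and 9658, 10304 and 10497 CPM in MU14 (log2 difference -0.56 ± 0.09 SE, edgeR adjusted p = 0.0028). Initiation factors followed, with 169 and 164 CPM in MU12 and 269, 290.2 and 288 CPM in MU14 (log2 difference -0.76 ± 0.09 SE, edgeR adjusted p = 0.00086) for eIF3c and 638 and 639 CPM in MU12 and 976, 963 and 962 CPM in MU14 (log2 difference -0.60 ± 0.09 SE, edgeR adjusted p = 0.0019) for the helicase eIF4A. The subunit gene eIF3h (-0.71 ± 0.09 SE, edgeR adjusted p = 0.0011) and the cap-binding protein eIF4E1 (-0.66 ± 0.11 SE, edgeR adjusted p = 0.0033) were likewise lower in MU12. Thor, the eIF4E-binding protein that represses cap-dependent translation and is induced by foxo, was also lower in MU12, with 453 and 541 CPM in MU12 and 792, 827 and 917 CPM in MU14 (log2 difference -0.77 ± 0.12 SE, edgeR adjusted p = 0.0023). Translation factors and their repressor thus had the same sign.

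The aminoacyl-tRNA synthetases, which charge tRNAs with amino acids, were divided. Among them 6 of 18 tested members were higher in MU12 and 2 in MU14, with a median log2 difference of 0.31. For aminoacyl-tRNA synthetases, the counts in MU12 and MU14 were 1 and 2 with upper-quartile scaling, 2 and 2 without MU14 replicate 1 and with only the 5 libraries fitted, 9 and 1 without MU12 replicate 1, 1 and 3 without MU12 replicate 2, 4 and 2 without MU14 replicate 2 and 3 and 2 without MU14 replicate 3. TyrRS had 32.8 and 39.5 CPM in MU12 and 58.1, 61.6 and 62.1 CPM in MU14 (log2 difference -0.75 ± 0.10 SE, edgeR adjusted p = 0.0015). LysRS had 20.4 and 25.6 CPM in MU12 and 36.6, 39.4 and 35.9 CPM in MU14 (log2 difference -0.70 ± 0.15 SE, edgeR adjusted p = 0.010). The LysRS call was lost without MU12 replicate 1 (adjusted p = 0.063). In the other direction AlaRS had 33.7 and 36.5 CPM in MU12 and 25.5, 24.7 and 25.0 CPM in MU14 (log2 difference 0.49 ± 0.10 SE, edgeR adjusted p = 0.0090), while AsnRS (0.57 ± 0.16 SE, edgeR adjusted p = 0.028) and TrpRS (0.50 ± 0.12 SE, edgeR adjusted p = 0.019) were the widest. Of these, calls were lost for AlaRS without MU12 replicate 2, for AsnRS without MU12 replicate 2 or any MU14 library, with upper-quartile scaling and with only the 5 libraries fitted, for TrpRS without MU12 replicates 1 or 2 or MU14 replicate 3 and with upper-quartile scaling (adjusted p from 0.055 to 0.20). When 1 library was left out the median ranged from 0.01 (without MU12 replicate 2) to 0.46 (without MU12 replicate 1) for aminoacyl-tRNA synthetases.

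The mitochondrial genome encodes 13 proteins of the respiratory chain. Among these genes, listed after their values were seen, 0 of 13 tested members were higher in MU12 and 7 in MU14, with a median log2 difference of -0.37. For mitochondrial genome, the counts in MU12 and MU14 were 0 and 4 with no filter, 0 and 3 with only the 5 libraries fitted, 0 and 1 without MU12 replicates 1 or 2, 0 and 2 without MU14 replicate 1 and 2 and 2 without MU14 replicate 2. mt:Cyt-b, cytochrome b, had 2162 and 2210.3 CPM in MU12 and 3304, 3289.6 and 3060.4 CPM in MU14 (log2 difference -0.56 ± 0.09 SE, edgeR adjusted p = 0.0034). The oxidase subunits mt:CoI (-0.45 ± 0.12 SE, edgeR adjusted p = 0.022) and mt:CoIII (-0.51 ± 0.12 SE, edgeR adjusted p = 0.019) and mt:ATPase6 (-0.41 ± 0.10 SE, edgeR adjusted p = 0.020) had differences of similar size. Calls were lost for mt:CoI without MU12 replicates 1 or 2 or MU14 replicates 1 or 2, for mt:CoIII without MU12 replicates 1 or 2 or MU14 replicate 1, for mt:ATPase6 without MU12 replicates 1 or 2 or MU14 replicates 1 or 2 and with only the 5 libraries fitted (adjusted p from 0.0501 to 0.079). In the nuclear genes of oxidative phosphorylation 1 of 64 tested members was higher in MU12 and 5 in MU14, with a median log2 difference of -0.04. For oxidative phosphorylation, the counts in MU12 and MU14 were 0 and 9 with upper-quartile scaling, 0 and 3 with only the 5 libraries fitted and 1 and 3 without MU12 replicate 1. ATPsynbeta, the catalytic subunit of ATP synthase, had 187 and 216 CPM in MU12 and 298, 301 and 302 CPM in MU14 (log2 difference -0.58 ± 0.11 SE, edgeR adjusted p = 0.0057). SdhA (-0.45 ± 0.10 SE, edgeR adjusted p = 0.010), ND-B14 (-0.61 ± 0.14 SE, edgeR adjusted p = 0.014) and COX6B (-0.46 ± 0.14 SE, edgeR adjusted p = 0.039) were lower in MU12, and UQCR-C1 (0.33 ± 0.10 SE, edgeR adjusted p = 0.045) was higher. The call was lost for SdhA without MU12 replicate 1 and with only the 5 libraries fitted, for ND-B14 without MU12 replicate 1, for COX6B without MU12 replicate 1 or any MU14 library, with no filter and with only the 5 libraries fitted, for UQCR-C1 without MU12 replicate 2 or any MU14 library, with RLE size factors, with upper-quartile scaling, with no filter and with only the 5 libraries fitted (adjusted p from 0.051 to 0.33). Across the fits without 1 library the median ran from -0.13 (without MU12 replicate 2) to 0.06 (without MU12 replicate 1) for oxidative phosphorylation.

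Mitochondrial ribosomal proteins gave few calls, and of them 0 of 72 tested members were higher in MU12 and 7 in MU14, with a median log2 difference of -0.16. For mitochondrial ribosomal proteins, the counts in MU12 and MU14 were 0 and 12 with upper-quartile scaling, 0 and 4 without MU12 replicate 2 or MU14 replicates 2 or 3 and with no filter, 0 and 3 with only the 5 libraries fitted and 1 and 4 without MU14 replicate 1. mRpL49 had 2.49 and 1.90 CPM in MU12 and 5.32, 6.06 and 4.35 CPM in MU14 (log2 difference -1.25 ± 0.26 SE, edgeR adjusted p = 0.0084). mRpS6 had 1.15 and 1.60 CPM in MU12 and 3.62, 2.70 and 2.94 CPM in MU14 (log2 difference -1.17 ± 0.24 SE, edgeR adjusted p = 0.0082). The threshold was missed for mRpL49 without MU12 replicate 2, for mRpS6 without MU12 replicate 1 (adjusted p from 0.052 to 0.058). mRpL14 (-0.71 ± 0.18 SE, edgeR adjusted p = 0.020) and mRpL43 (-0.65 ± 0.16 SE, edgeR adjusted p = 0.019) followed. Significance was lost for mRpL14 without MU12 replicate 1 or MU14 replicates 2 or 3 and with only the 5 libraries fitted, for mRpL43 without MU12 replicates 1 or 2 and with only the 5 libraries fitted (adjusted p from 0.054 to 0.11). In the citric acid cycle 2 of 15 tested members were higher in MU12 and 3 in MU14, with a median log2 difference of 0.04 (-0.06 with upper-quartile scaling). For citric acid cycle, the counts in MU12 and MU14 were 3 and 1 with only the 5 libraries fitted and 1 and 2 without MU12 replicate 2 or MU14 replicate 2. Ogdh, the dehydrogenase of oxoglutarate, had 75.7 and 118 CPM in MU12 and 33.0, 35.1 and 42.6 CPM in MU14 (log2 difference 1.39 ± 0.26 SE, edgeR adjusted p = 0.0060), whereas kdn, citrate synthase, had 8.99 and 8.77 CPM in MU12 and 16.3, 17.0 and 13.6 CPM in MU14 (log2 difference -0.82 ± 0.16 SE, edgeR adjusted p = 0.0065). The strains did not overlap in either gene. ScsbetaG (0.58 ± 0.16 SE, edgeR adjusted p = 0.025) was higher in MU12 and mAcon1 (-0.50 ± 0.13 SE, edgeR adjusted p = 0.021) lower. Of these, calls were lost for ScsbetaG without MU12 replicate 2 or any MU14 library, for mAcon1 without MU12 replicate 2 or MU14 replicate 2 and with only the 5 libraries fitted (adjusted p from 0.053 to 0.19). With 1 library left out, the median ranged from -0.07 (without MU12 replicate 2) to 0.07 (without MU14 replicate 3) for citric acid cycle.

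Proteasome genes lay above MU14 in MU12, with a count that rested on single libraries. The proteasome degrades ubiquitin-tagged proteins, and its subunits are expressed together. Of its subunits 16 of 32 tested members were higher in MU12 and 0 in MU14, with a median log2 difference of 0.42. For proteasome, the counts in MU12 and MU14 were 4 and 0 with upper-quartile scaling, 9 and 0 with no filter, 5 and 0 with only the 5 libraries fitted, 1 and 0 without MU12 replicate 1, 28 and 0 without MU12 replicate 2, 3 and 0 without MU14 replicates 1 or 3 and 2 and 0 without MU14 replicate 2. Prosalpha7 had 125 and 94.3 CPM in MU12 and 69.2, 70.6 and 70.7 CPM in MU14 (log2 difference 0.64 ± 0.13 SE, edgeR adjusted p = 0.0071), and it was the subunit among the 4 widest that kept its call with any 1 library left out. Prosbeta4 (123 and 93.1 CPM in MU12 and 73.0, 66.9 and 68.9 CPM in MU14) and Prosalpha6 (135 and 102 CPM in MU12 and 81.5, 74.4 and 80.2 CPM in MU14) showed the same pattern, in which MU12 replicate 1 was the highest library and MU12 replicate 2 lay between it and MU14. Calls were lost for Prosbeta4 without MU12 replicate 1, for Prosalpha6 without MU12 replicate 1 or any MU14 library (adjusted p from 0.054 to 0.16). Rpt5, an ATPase of the regulatory cap, had 192 and 140.5 CPM in MU12 and 120.1, 101 and 120.5 CPM in MU14 (log2 difference 0.55 ± 0.15 SE, edgeR adjusted p = 0.031). The Rpt5 call was lost without MU12 replicate 1 or any MU14 library, with upper-quartile scaling and with only the 5 libraries fitted (adjusted p from 0.052 to 0.21). The median with 1 library left out ranged from 0.20 (without MU12 replicate 1) to 0.58 (without MU12 replicate 2) for proteasome.

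In autophagy, which degrades cytoplasm in lysosomes and starts in the fat body at the end of larval life, 2 of 23 tested members were higher in MU12 and 1 in MU14, with a median log2 difference of 0.12. Atg1, the kinase that starts autophagy, had 456 and 372 CPM in MU12 and 236, 196 and 224 CPM in MU14 (log2 difference 0.92 ± 0.18 SE, edgeR adjusted p = 0.0067). The cargo receptor ref(2)P (0.54 ± 0.17 SE, edgeR adjusted p = 0.048) was higher in MU12 and Atg2 (-0.59 ± 0.18 SE, edgeR adjusted p = 0.041) lower. The call was lost for ref(2)P without MU12 replicate 1 or any MU14 library, with upper-quartile scaling, with no filter, in limma-voom and with only the 5 libraries fitted, for Atg2 without MU12 replicates 1 or 2 or MU14 replicate 1, with no filter and with only the 5 libraries fitted (adjusted p from 0.052 to 0.31). For the vacuolar ATPase, the lysosomal proton pump, 1 of 17 tested members was higher in MU12 and 2 in MU14, with a median log2 difference of -0.05. The genes were VhaSFD (0.36 ± 0.09 SE, edgeR adjusted p = 0.023), VhaAC39-1 (-0.55 ± 0.12 SE, edgeR adjusted p = 0.013) and VhaM9.7-b (-0.36 ± 0.09 SE, edgeR adjusted p = 0.025). The threshold was missed for VhaSFD without MU12 replicates 1 or 2 or MU14 replicates 1 or 2, with upper-quartile scaling and with only the 5 libraries fitted, for VhaAC39-1 without MU12 replicate 2, for VhaM9.7-b without MU12 replicate 2 or any MU14 library, with no filter and with only the 5 libraries fitted (adjusted p from 0.052 to 0.11). For autophagy, the counts in MU12 and MU14 were 1 and 3 with upper-quartile scaling, 1 and 0 without MU14 replicate 1, with no filter and with only the 5 libraries fitted and 3 and 2 in DESeq2. For vacuolar ATPase, the counts in MU12 and MU14 were 0 and 1 without MU14 replicates 1 or 2 and with only the 5 libraries fitted and 0 and 0 without MU12 replicate 2.

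Heat shock protein genes held wide differences, the widest in the Hsp70 copies. These chaperones refold proteins, and the Hsp70 copies are nearly silent until stress induces them. In this group 2 of 21 tested members were higher in MU12 and 14 in MU14, with a median log2 difference of -1.70. For heat shock proteins, the counts in MU12 and MU14 were 0 and 14 without MU12 replicate 1 and 1 and 9 without MU12 replicate 2. Hsp70Ab had 5.61 and 3.26 CPM in MU12 and 127, 157 and 125 CPM in MU14 (log2 difference -4.94 ± 0.72 SE, edgeR adjusted p = 0.0019). Hsp70Aa had 6.74 and 3.23 CPM in MU12 and 128, 147 and 128 CPM in MU14 (log2 difference -4.74 ± 0.71 SE, edgeR adjusted p = 0.0021). Hsp70Ba had 1.06 and 0.706 CPM in MU12 and 31.9, 43.1 and 32.5 CPM in MU14 (log2 difference -5.33 ± 0.78 SE, edgeR adjusted p = 0.0019). MU12 was low in both libraries and MU14 high in all 3. The remaining copies had log2 differences of -5.19 ± 0.80 SE, edgeR adjusted p = 0.0023 for Hsp70Bbb, -4.85 ± 0.84 SE, edgeR adjusted p = 0.0040 for Hsp70Bb and -4.66 ± 0.89 SE, edgeR adjusted p = 0.0062 for Hsp70Bc. Significance was lost for Hsp70Bb in limma-voom, for Hsp70Bc without MU12 replicate 2 and in limma-voom (adjusted p from 0.0501 to 0.17). The 6 copies are near-identical, so that their counts are not independent and the share of each is uncertain. In the 6 libraries of the other strains Hsp70Ab ranged from 73.2 to 397 CPM, and MU12 held the lowest values.

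Hsp68, a related inducible gene, had 19.7 and 14.7 CPM in MU12 and 245, 408 and 157 CPM in MU14 (log2 difference -3.97 ± 0.44 SE, edgeR adjusted p = 0.00059). Smaller chaperones went the same way, with 0.728 and 0.380 CPM in MU12 and 5.82, 9.94 and 6.10 CPM in MU14 (log2 difference -3.69 ± 0.66 SE, edgeR adjusted p = 0.0047) for Hsp67Bc and 1.67 and 1.03 CPM in MU12 and 7.77, 5.92 and 3.96 CPM in MU14 (log2 difference -2.11 ± 0.36 SE, edgeR adjusted p = 0.0040) for Hsp67Ba. The constitutive Hsc70-4 had 954 and 754 CPM in MU12 and 1708, 1771 and 1326 CPM in MU14 (log2 difference -0.91 ± 0.17 SE, edgeR adjusted p = 0.0061), a narrower difference. Hsp26 (-1.70 ± 0.36 SE, edgeR adjusted p = 0.010), Hsp83 (-1.57 ± 0.43 SE, edgeR adjusted p = 0.028), DnaJ-1 (-2.31 ± 0.61 SE, edgeR adjusted p = 0.024) and Hsp60A (-1.01 ± 0.25 SE, edgeR adjusted p = 0.019) were lower in MU12 as well. Of these, calls were lost for Hsp26 without MU12 replicate 2, for Hsp83 without MU12 replicate 2 or MU14 replicates 1 or 2 and with only the 5 libraries fitted, for DnaJ-1 without MU12 replicate 2 or MU14 replicates 1 or 2, for Hsp60A without MU12 replicate 2 or MU14 replicate 1 (adjusted p from 0.053 to 0.15). Hsp27 (chromosome 3L, 9384063 to 9385694), a small heat shock protein that also responds to ecdysone, was higher in MU12, with 1172 and 486 CPM in MU12 and 319, 342 and 236 CPM in MU14 (log2 difference 1.47 ± 0.33 SE, edgeR adjusted p = 0.012). The Hsp27 call was lost without MU12 replicate 1 (adjusted p = 0.074). The pseudogene CR43483 overlaps Hsp27 on the opposite strand. The endoplasmic reticulum chaperone Hsc70-3 was higher in MU12 too (0.66 ± 0.21 SE, edgeR adjusted p = 0.047). The Hsc70-3 call was lost without any 1 of the 5 libraries, with upper-quartile scaling, with no filter and in limma-voom (adjusted p from 0.0501 to 0.27). Hsf, the heat shock transcription factor, had 23.6 and 22.2 CPM in MU12 and 23.6, 24.2 and 25.4 CPM in MU14 and was not called.

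Detoxification genes included some of the widest differences. Cytochrome P450 enzymes oxidise hormones, plant compounds and insecticides. Of the P450 genes 28 of 56 tested members were higher in MU12 and 7 in MU14, with a median log2 difference of 0.88. For the P450 genes, the counts in MU12 and MU14 were 23 and 3 without MU12 replicate 1 and 17 and 5 without MU12 replicate 2. Cyp4ac1 had 24.2 and 52.1 CPM in MU12 and 0.638, 1.01 and 1.12 CPM in MU14 (log2 difference 5.36 ± 0.42 SE, edgeR adjusted p = 9.2e-05). Its neighbour Cyp4ac2 had 7.91 and 15.5 CPM in MU12 and 0.851, 2.09 and 1.41 CPM in MU14 (log2 difference 3.00 ± 0.63 SE, edgeR adjusted p = 0.010). The Cyp4ac2 call was lost without MU12 replicate 2 (adjusted p = 0.059). Cyp6a17 had 14.7 and 38.9 CPM in MU12 and 1.44, 1.57 and 2.23 CPM in MU14 (log2 difference 3.93 ± 0.49 SE, edgeR adjusted p = 0.0015). Cyp6a22 had 18.1 and 43.4 CPM in MU12 and 2.37, 3.34 and 5.12 CPM in MU14 (log2 difference 3.09 ± 0.41 SE, edgeR adjusted p = 0.0013). MU12 replicate 2 was the higher MU12 library in all 4 genes, and no MU14 library overlapped MU12. In the other strains Cyp4ac1 ranged from 1.93 to 42.4 CPM and Cyp6a17 from 0 to 18.6 CPM, so that other strains lay at either level.

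Cyp9b2 had 236 and 386 CPM in MU12 and 47.1, 59.8 and 52.6 CPM in MU14 (log2 difference 2.55 ± 0.26 SE, edgeR adjusted p = 0.00041). Cyp9b1 had 20.8 and 38.0 CPM in MU12 and 3.88, 4.15 and 3.91 CPM in MU14 (log2 difference 2.88 ± 0.35 SE, edgeR adjusted p = 0.00089). The most abundant gene of the family, Cyp6g1, whose overexpression is known to give resistance to DDT, had 17379 and 17493 CPM in MU12 and 7654, 9906 and 9587 CPM in MU14 (log2 difference 0.95 ± 0.13 SE, edgeR adjusted p = 0.0013). Cyp309a2 (3.80 ± 0.31 SE, edgeR adjusted p = 0.00013) and Cyp4d8 (3.83 ± 0.62 SE, edgeR adjusted p = 0.0032) also kept their calls with any 1 library left out. Cyp4ac3 (0.798 and 3.31 CPM in MU12 and 0.106, 0.0982 and 0.0243 CPM in MU14) and Cyp4e3 (2.35 and 28.7 CPM in MU12 and 0.585, 1.13 and 1.36 CPM in MU14) were called with wide errors, since MU12 replicate 2 lay far above MU12 replicate 1. Calls were lost for Cyp4ac3 without MU12 replicate 2 or any MU14 library and in limma-voom, for Cyp4e3 without MU12 replicate 2 or any MU14 library, with upper-quartile scaling and in limma-voom (adjusted p from 0.0502 to 0.58). Cyp6d5 was called with a log2 difference of 0.97 ± 0.29 SE, edgeR adjusted p = 0.036. The Cyp6d5 call was lost without any 1 of the 5 libraries (adjusted p from 0.061 to 0.17). In the opposite direction Cyp304a1 had 10.8 and 21.6 CPM in MU12 and 132, 76.5 and 88.9 CPM in MU14 (log2 difference -2.61 ± 0.38 SE, edgeR adjusted p = 0.0019). Cyp6a13 had 1.06 and 1.98 CPM in MU12 and 8.56, 9.01 and 8.31 CPM in MU14 (log2 difference -2.51 ± 0.24 SE, edgeR adjusted p = 0.00025).

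Glutathione transferases conjugate reactive compounds with glutathione. Among them 7 of 28 tested members were higher in MU12 and 3 in MU14, with a median log2 difference of 0.12. The list sum was 2427 to 3330 CPM in MU12 and 3099 to 3858 CPM in MU14. Calls in MU12 and MU14 were 8 and 5 in DESeq2. They were 6 and 1 without MU14 replicates 1 or 2 and 7 and 1 without MU14 replicate 3. GstE1 had 35.0 and 30.4 CPM in MU12 and 1.52, 0.908 and 1.46 CPM in MU14 (log2 difference 4.66 ± 0.34 SE, edgeR adjusted p = 6.1e-05). GstD3 had 98.5 and 34.5 CPM in MU12 and 2.87, 6.02 and 2.06 CPM in MU14 (log2 difference 4.18 ± 0.58 SE, edgeR adjusted p = 0.0016). With GstD6 these were the 3 widest of the group, and each separated the strains by more than the replicate spread. GstD10 (2.43 ± 0.39 SE, edgeR adjusted p = 0.0028), GstE6 (2.22 ± 0.32 SE, edgeR adjusted p = 0.0018) and GstT3 (2.17 ± 0.54 SE, edgeR adjusted p = 0.019) were higher in MU12, as was the abundant GstS1 (0.88 ± 0.16 SE, edgeR adjusted p = 0.0049). The GstT3 call was lost without MU12 replicate 2 or MU14 replicates 1 or 2 (adjusted p from 0.063 to 0.10). GstO3, of the omega class, was higher in MU14, with 26.3 and 21.2 CPM in MU12 and 272, 261 and 239 CPM in MU14 (log2 difference -3.44 ± 0.15 SE, edgeR adjusted p = 3.7e-06). GstE14, which acts in ecdysteroid synthesis, was near or below 1 CPM in every library (-4.06 ± 1.10 SE, edgeR adjusted p = 0.027). The GstE14 call was lost without any 1 of the 5 libraries (adjusted p from 0.052 to 0.12). Genes of the GstD and GstE clusters are similar in sequence, so their counts are less certain. Without 1 library the Gst median ran from -0.06 (without MU12 replicate 2) to 0.22 (without MU14 replicate 2).

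UDP-glycosyltransferases attach sugars to small molecules, and of them 4 of 20 tested members were higher in MU12 and 3 in MU14, with a median log2 difference of 0.25. For UDP-glycosyltransferases, the counts in MU12 and MU14 were 6 and 3 in DESeq2, 1 and 3 without MU12 replicate 2 and 2 and 4 without MU14 replicate 1. Ugt302K1 had 3.69 and 2.47 CPM in MU12 and 0.213, 0.0737 and 0.0972 CPM in MU14 (log2 difference 4.57 ± 0.42 SE, edgeR adjusted p = 0.00022). Ugt49C1 had 8.12 and 11.3 CPM in MU12 and 0.239, 0.491 and 2.33 CPM in MU14 (log2 difference 3.24 ± 0.71 SE, edgeR adjusted p = 0.012). The Ugt49C1 call was lost without MU12 replicate 2 (adjusted p = 0.058). Higher in MU14 were Ugt317A1, with 3.33 and 4.05 CPM in MU12 and 23.6, 30.0 and 31.4 CPM in MU14 (log2 difference -2.94 ± 0.20 SE, edgeR adjusted p = 4.2e-05), and Ugt35C1, with 13.1 and 41.2 CPM in MU12 and 134, 94.6 and 132 CPM in MU14 (log2 difference -2.15 ± 0.45 SE, edgeR adjusted p = 0.0094). The transcriptional regulators of the oxidative stress response were not called, with 219 and 281 CPM in MU12 and 266, 219 and 291 CPM in MU14 for cnc and 22.3 and 17.0 CPM in MU12 and 14.04, 14.7 and 14.8 CPM in MU14 for Keap1. Without 1 library the Ugt median ran from 0.02 (without MU12 replicate 2) to 0.50 (without MU14 replicate 3).

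Redox defence genes were few and divided, and of them 2 of 16 tested members were higher in MU12 and 2 in MU14, with a median log2 difference of 0.03 (-0.08 with upper-quartile scaling). For redox defence, the counts in MU12 and MU14 were 0 and 2 without MU12 replicate 1, 0 and 1 without MU12 replicate 2 or MU14 replicate 2 and 1 and 1 without MU14 replicate 1. Catalase, Cat, had 3193 and 2997 CPM in MU12 and 1976, 1903 and 2138 CPM in MU14 (log2 difference 0.63 ± 0.16 SE, edgeR adjusted p = 0.022). The Cat call was lost without MU12 replicates 1 or 2 or MU14 replicates 1 or 2 (adjusted p from 0.067 to 0.088). The subunits of glutamate cysteine ligase, the first enzyme of glutathione synthesis, went apart, with 0.90 ± 0.21 SE, edgeR adjusted p = 0.016 for the modifier subunit Gclm and -1.28 ± 0.29 SE, edgeR adjusted p = 0.013 for the catalytic subunit Gclc. Prx3, a mitochondrial peroxiredoxin, was lower in MU12 (-0.75 ± 0.19 SE, edgeR adjusted p = 0.022). The call was lost for Gclm without MU12 replicates 1 or 2 or MU14 replicate 2, for Gclc without MU12 replicate 2, for Prx3 without MU12 replicate 1 or MU14 replicates 1 or 2 (adjusted p from 0.054 to 0.12). Across the fits without 1 library the median ran from -0.05 (without MU12 replicate 2) to 0.10 (without MU12 replicate 1) for redox defence.

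**Figure D4:**
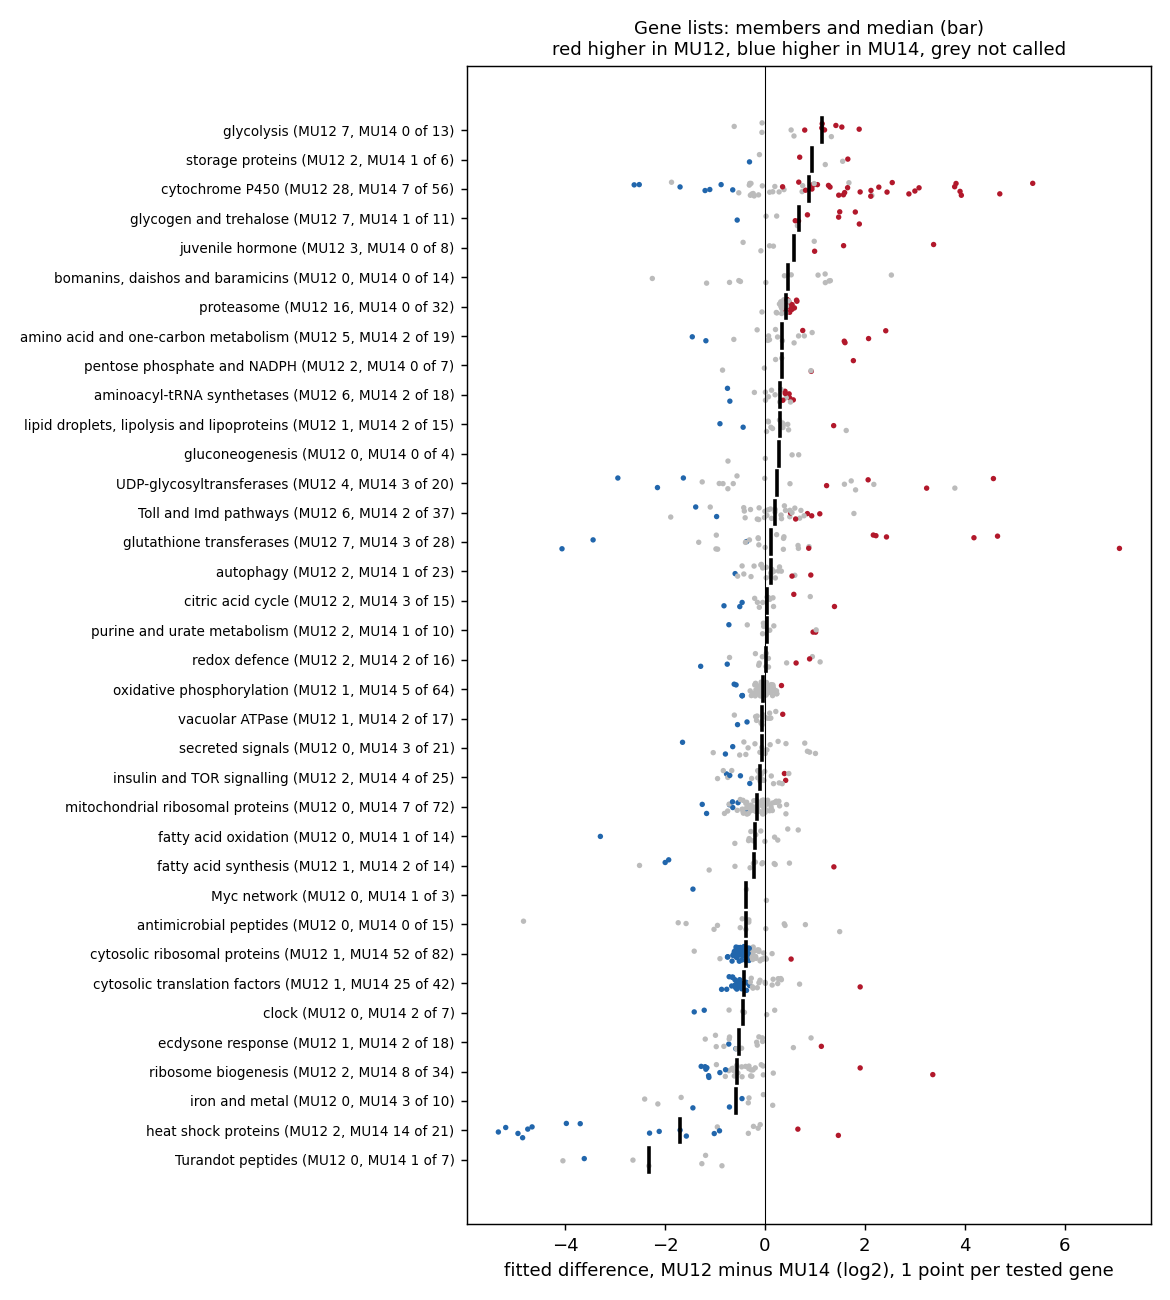
Log2 differences, MU12 minus MU14 (x axis), of the tested members of each gene list (rows, ordered by median), 1 point per gene, red for genes called higher in MU12, blue for genes called higher in MU14 and grey for genes not called, with a black bar at the median. Points of glycolysis and of the P450 genes lie mainly to the right of 0 (medians 1.14 and 0.88), and those of heat shock proteins, ribosome biogenesis, cytosolic ribosomal proteins and translation factors mainly to the left (medians -1.70, -0.55, -0.39 and -0.41).

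In iron storage and transport, where the called share was close to the 26.5% over all genes, 0 of 10 tested members were higher in MU12 and 3 in MU14, with a median log2 difference of -0.58. Fer1HCH, the ferritin heavy chain, had 514 and 445 CPM in MU12 and 797, 727 and 825 CPM in MU14 (log2 difference -0.71 ± 0.12 SE, edgeR adjusted p = 0.0039), and Fer2LCH, the light chain, was also lower in MU12 (-0.46 ± 0.12 SE, edgeR adjusted p = 0.023). The Fer2LCH call was lost without MU12 replicates 1 or 2 or MU14 replicates 1 or 3 and with only the 5 libraries fitted (adjusted p from 0.052 to 0.10). Tsf1 (chromosome X, 18387084 to 18390344), the transferrin that carries iron in the haemolymph, had 2149 and 2358 CPM in MU12 and 6506, 5449 and 6379 CPM in MU14 (log2 difference -1.44 ± 0.44 SE, edgeR adjusted p = 0.041). The Tsf1 call was lost without any 1 of the 5 libraries (adjusted p from 0.072 to 0.15). In purine and urate metabolism 2 of 10 tested members were higher in MU12 and 1 in MU14, with a median log2 difference of 0.04 (-0.07 with upper-quartile scaling). Adsl, adenylosuccinate lyase, had 669 and 563 CPM in MU12 and 269, 348 and 329 CPM in MU14 (log2 difference 0.97 ± 0.22 SE, edgeR adjusted p = 0.013), and bur, GMP synthetase, had 60.3 and 94.3 CPM in MU12 and 30.9, 35.4 and 48.3 CPM in MU14 (log2 difference 1.02 ± 0.23 SE, edgeR adjusted p = 0.014). The threshold was missed for Adsl without MU12 replicate 1, for bur without MU12 replicate 2 (adjusted p from 0.067 to 0.11). Pfas, an earlier enzyme of purine synthesis, was lower in MU12 (-0.72 ± 0.20 SE, edgeR adjusted p = 0.027). The Pfas call was lost without MU12 replicates 1 or 2 or MU14 replicates 1 or 3 (adjusted p from 0.061 to 0.12). For iron storage and transport, the counts in MU12 and MU14 were 0 and 5 with upper-quartile scaling, 0 and 7 in DESeq2 and 0 and 1 without MU12 replicates 1 or 2 or MU14 replicate 3. For purine and urate metabolism, the counts in MU12 and MU14 were 1 and 0 without MU12 replicates 1 or 2. With 1 library left out, the median ranged from -0.0014 (without MU14 replicate 3) to 0.12 (without MU12 replicate 2) for purine and urate metabolism.

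Hormone pathways were compared because the fat body both answers to hormones and secretes them. In insulin and TOR signalling, which couple growth to nutrition, 2 of 25 tested members were higher in MU12 and 4 in MU14, with a median log2 difference of -0.10. For insulin and TOR signalling, the counts in MU12 and MU14 were 0 and 5 with upper-quartile scaling, 1 and 2 with no filter, 2 and 7 in DESeq2, 0 and 2 without MU12 replicate 2 or MU14 replicate 1 and with only the 5 libraries fitted, 0 and 3 without MU12 replicate 1, 0 and 4 without MU14 replicate 2 and 2 and 2 without MU14 replicate 3. Ilp6, the insulin-like peptide that the fat body secretes after feeding has ended, had 456 and 357 CPM in MU12 and 766, 563 and 654 CPM in MU14 (log2 difference -0.70 ± 0.16 SE, edgeR adjusted p = 0.013). The Ilp6 call was lost without MU12 replicate 2 (adjusted p = 0.075). The insulin receptor InR (43.7 and 75.3 CPM in MU12 and 72.3, 36.9 and 53.9 CPM in MU14) was not called. The kinase gene mTor (0.42 ± 0.11 SE, edgeR adjusted p = 0.023) and gig (0.39 ± 0.11 SE, edgeR adjusted p = 0.032), which encodes a TOR inhibitor, were higher in MU12, and foxo (-0.49 ± 0.15 SE, edgeR adjusted p = 0.041) and Rheb (-0.30 ± 0.09 SE, edgeR adjusted p = 0.040) lower. Significance was lost for mTor without MU12 replicates 1 or 2 or MU14 replicates 1 or 2, with upper-quartile scaling and with only the 5 libraries fitted, for gig without MU12 replicates 1 or 2 or MU14 replicates 1 or 2, with upper-quartile scaling, with no filter and with only the 5 libraries fitted, for foxo without MU12 replicates 1 or 2 or MU14 replicates 1 or 3, with no filter and with only the 5 libraries fitted, for Rheb without any 1 of the 5 libraries, with no filter, with the filterByExpr filter and with only the 5 libraries fitted (adjusted p from 0.051 to 0.16). The median with 1 library left out ranged from -0.22 (without MU12 replicate 2) to -0.05 (without MU14 replicate 3) for insulin and TOR signalling.

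Among secreted signals 0 of 21 tested members were higher in MU12 and 3 in MU14, with a median log2 difference of -0.06. The TGF-beta ligand myoglianin, myo, had 27.9 and 29.0 CPM in MU12 and 52.0, 43.4 and 51.9 CPM in MU14 (log2 difference -0.79 ± 0.11 SE, edgeR adjusted p = 0.0018). The activin-like ligand daw (-0.64 ± 0.14 SE, edgeR adjusted p = 0.013) and the lipocalin GLaz (-1.65 ± 0.32 SE, edgeR adjusted p = 0.0072) were lower in MU12 too. Of these, calls were lost for daw and GLaz without MU12 replicate 2 (adjusted p from 0.051 to 0.065). For secreted signals, the counts in MU12 and MU14 were 0 and 5 without MU12 replicate 1 and with upper-quartile scaling, 1 and 5 in DESeq2 and 0 and 1 without MU12 replicate 2. Without 1 library the median ran from -0.34 (without MU12 replicate 2) to -0.07 (without MU14 replicate 3) for secreted signals.

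In juvenile hormone metabolism and response 3 of 8 tested members were higher in MU12 and 0 in MU14, with a median log2 difference of 0.58. JhI-26, a juvenile hormone inducible gene, had 7.16 and 16.7 CPM in MU12 and 0.851, 1.40 and 1.17 CPM in MU14 (log2 difference 3.38 ± 0.41 SE, edgeR adjusted p = 0.00089). Jheh2, an epoxide hydrolase that degrades the hormone, had 323 and 329.9 CPM in MU12 and 94.7, 122 and 112 CPM in MU14 (log2 difference 1.58 ± 0.17 SE, edgeR adjusted p = 0.00058), and Jheh1 was higher in MU12 as well (0.996 ± 0.27 SE, edgeR adjusted p = 0.028). The Jheh1 call was lost without MU12 replicate 2 or MU14 replicates 1 or 3 (adjusted p from 0.069 to 0.16). In the ecdysone response 1 of 18 tested members was higher in MU12 and 2 in MU14, with a median log2 difference of -0.52. For ecdysone response, the counts in MU12 and MU14 were 1 and 4 in DESeq2, 0 and 7 without MU12 replicate 1, 0 and 0 without MU12 replicate 2 and 0 and 1 without MU14 replicate 2. Eip75B, a nuclear receptor induced early by ecdysone, had 219 and 175 CPM in MU12 and 325, 315 and 335 CPM in MU14 (log2 difference -0.72 ± 0.15 SE, edgeR adjusted p = 0.0080). The Eip75B call was lost without MU12 replicate 2 (adjusted p = 0.052). Eip74EF (-0.58 ± 0.16 SE, edgeR adjusted p = 0.030) was lower in MU12 and ImpE3 (1.13 ± 0.31 SE, edgeR adjusted p = 0.027) higher. Calls were lost for Eip74EF without MU12 replicates 1 or 2 or MU14 replicates 1 or 2 and with only the 5 libraries fitted, for ImpE3 without MU12 replicates 1 or 2 or MU14 replicates 2 or 3 (adjusted p from 0.055 to 0.14). Of the clock genes 0 of 7 tested members were higher in MU12 and 2 in MU14, with a median log2 difference of -0.44. Pdp1, an activator in the clock loop, had 1.69 and 2.09 CPM in MU12 and 4.63, 3.56 and 4.95 CPM in MU14 (log2 difference -1.21 ± 0.23 SE, edgeR adjusted p = 0.0062), and cry, the blue light receptor, was also lower in MU12 (-1.41 ± 0.43 SE, edgeR adjusted p = 0.043). The cry call was lost without any 1 of the 5 libraries, with no filter and in limma-voom (adjusted p from 0.057 to 0.17). For juvenile hormone, the counts in MU12 and MU14 were 4 and 1 without MU12 replicate 1. For clock, the counts in MU12 and MU14 were 0 and 1 without MU12 replicate 2 or MU14 replicates 1 or 3, with no filter and in limma-voom. When 1 library was left out the median ranged from -0.04 (without MU12 replicate 2) to 0.81 (without MU12 replicate 1) for juvenile hormone and from -0.94 (without MU12 replicate 1) to -0.12 (without MU12 replicate 2) for ecdysone response.

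Immune effector genes differed widely between libraries of the same strain. Of the antimicrobial peptides 0 of 15 tested members were higher in MU12 and 0 in MU14, with a median log2 difference of -0.38 (0 at an unadjusted edgeR p under 0.05, 1 in DESeq2 and 0 in limma-voom). The most abundant, the antifungal peptide Drosomycin gene Drs, had 700.0 and 659.5 CPM in MU12 and 1294, 977 and 1854 CPM in MU14, and Drsl5 had 249 and 11 CPM in MU12 and 475, 522 and 298 CPM in MU14. MU12 replicate 2 was low for Drsl5 and its partner library was not. Drs was called with only the 5 libraries fitted (-1.02, adjusted p = 0.0497). Drsl5 was called without MU12 replicate 1 (-5.30, adjusted p = 0.011). Of the bomanins, daishos and baramicins 0 of 14 tested members were higher in MU12 and 0 in MU14, with a median log2 difference of 0.46 (0 at an unadjusted edgeR p under 0.05, 0 in DESeq2 and 0 in limma-voom). BaraA2 had 284 and 138 CPM in MU12 and 136, 179 and 592 CPM in MU14, and the highest library was MU14 replicate 3. With an SE of 1.36 on the log2 scale for BaraA2, the difference of -0.52 was not detectable with these libraries. Of the Turandot peptides, which are secreted under stress, 0 of 7 tested members were higher in MU12 and 1 in MU14, with a median log2 difference of -2.32. The called gene TotZ had 0.164 and 0.109 CPM in MU12 and 2.05, 1.15 and 1.97 CPM in MU14 (log2 difference -3.61 ± 0.89 SE, edgeR adjusted p = 0.018). The TotZ call was lost without MU12 replicates 1 or 2 and in limma-voom (adjusted p from 0.061 to 0.10). For Turandot peptides, the counts in MU12 and MU14 were 0 and 3 in DESeq2, 0 and 0 without MU12 replicates 1 or 2 and in limma-voom and 0 and 4 with only the 5 libraries fitted. For antimicrobial peptides, the counts in MU12 and MU14 were 0 and 1 without MU12 replicate 1, in DESeq2 and with only the 5 libraries fitted. Across the fits without 1 library the median ran from -2.01 (without MU12 replicate 1) to 0.28 (without MU12 replicate 2) for antimicrobial peptides and from -1.40 (without MU12 replicate 1) to 2.26 (without MU14 replicate 3) for bomanins, daishos and baramicins.

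The Toll and Imd pathways control these peptides, and in them 6 of 37 tested members were higher in MU12 and 2 in MU14, with a median log2 difference of 0.21. The called share, 21.6%, was under the 26.5% over all genes. For Toll and Imd pathways, the counts in MU12 and MU14 were 3 and 3 without MU12 replicate 1, 3 and 2 without MU12 replicate 2 and 4 and 2 without MU14 replicate 1. Fadd, an adaptor of the Imd pathway, had 4.30 and 3.59 CPM in MU12 and 10.6, 10.4 and 9.86 CPM in MU14 (log2 difference -1.38 ± 0.19 SE, edgeR adjusted p = 0.0016). The recognition protein PGRP-LE had 20.5 and 18.9 CPM in MU12 and 13.4, 13.0 and 14.8 CPM in MU14 (log2 difference 0.52 ± 0.10 SE, edgeR adjusted p = 0.0053). The NF-kappaB factor dl, dorsal, had 26.8 and 33.2 CPM in MU12 and 65.7, 58.3 and 51.6 CPM in MU14 (log2 difference -0.96 ± 0.21 SE, edgeR adjusted p = 0.011). The dl call was lost without MU12 replicate 1 (adjusted p = 0.063). The proteases psh (1.10 ± 0.24 SE, edgeR adjusted p = 0.012) and Hayan (0.62 ± 0.18 SE, edgeR adjusted p = 0.037), the recognition proteins GNBP1 (0.94 ± 0.22 SE, edgeR adjusted p = 0.014) and PGRP-SD (0.85 ± 0.24 SE, edgeR adjusted p = 0.032) and the kinase Tak1 (0.52 ± 0.11 SE, edgeR adjusted p = 0.0087) were higher in MU12. The call was lost for psh and GNBP1 without MU12 replicate 2, for Hayan without MU12 replicates 1 or 2 or MU14 replicates 1 or 2, with upper-quartile scaling and with only the 5 libraries fitted, for PGRP-SD without MU12 replicate 1 or MU14 replicates 1 or 3 and with only the 5 libraries fitted, for Tak1 without MU12 replicate 1 (adjusted p from 0.052 to 0.21). With 1 library left out, the median ranged from -0.02 (without MU12 replicate 1) to 0.38 (without MU12 replicate 2) for Toll and Imd pathways.

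**Figure D5:**
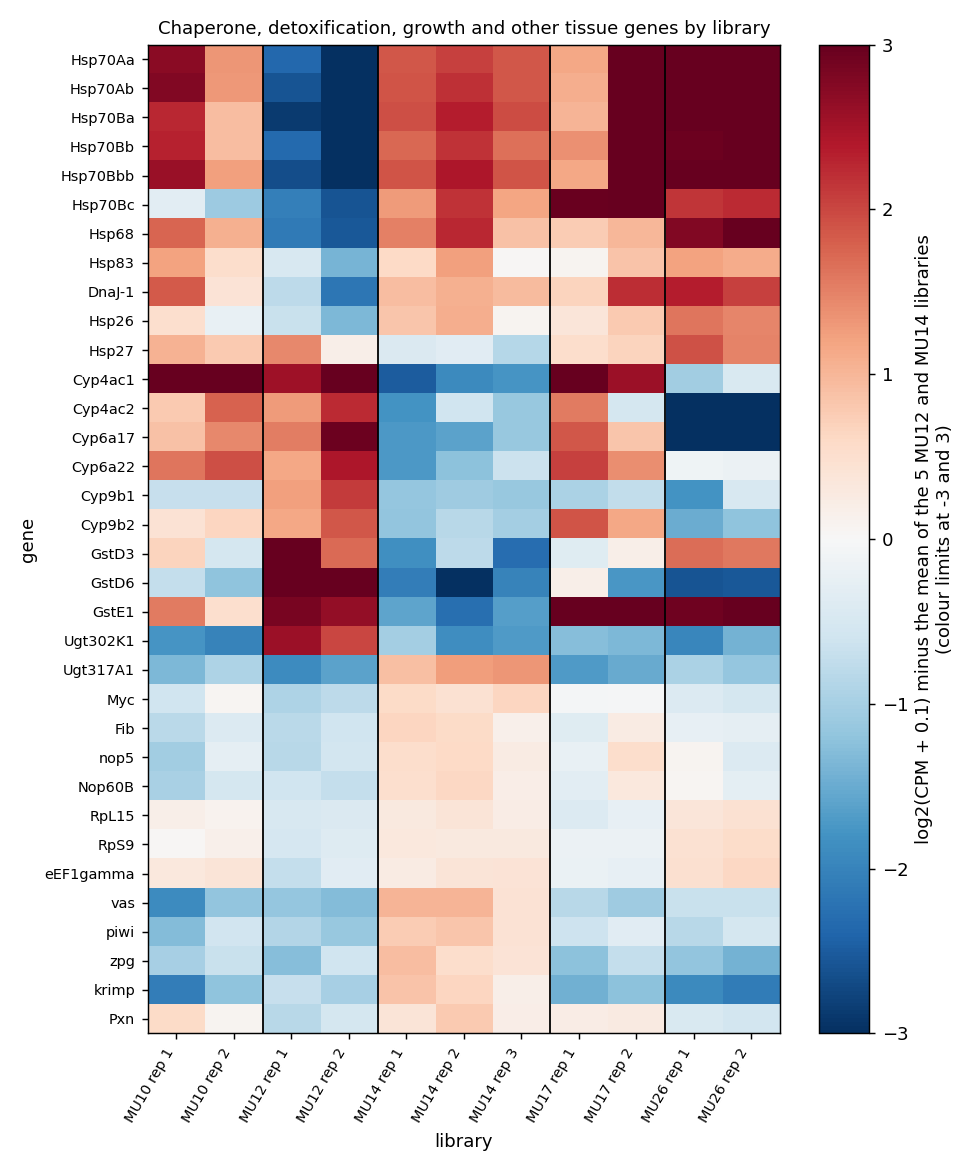
Heat map of chaperone, detoxification, growth, germ line and haemocyte genes (rows) in the 11 libraries (columns), as log2(CPM + 0.1) minus the mean of the 5 MU12 and MU14 libraries, with colours limited to -3 and 3. The Hsp70 copies are blue in both MU12 columns and red in the MU14 columns and in most other columns, the P450 and glutathione transferase genes are red in MU12, and Myc, the nucleolar genes and the germ line genes are red in MU14.

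A dissected fat body can carry cells of neighbouring tissues, and the larval ovary lies within it. Markers of the female germ line were higher in MU14, where 0 of 10 tested members were higher in MU12 and 7 in MU14, with a median log2 difference of -1.44. For female germ line, the counts in MU12 and MU14 were 0 and 4 without MU12 replicate 2 or MU14 replicate 1. The RNA helicase gene vas had 1.31 and 1.17 CPM in MU12 and 6.28, 6.24 and 4.13 CPM in MU14 (log2 difference -2.15 ± 0.28 SE, edgeR adjusted p = 0.0011), and piwi, which silences transposons in the ovary, had 3.19 and 2.66 CPM in MU12 and 10.1, 10.6 and 8.02 CPM in MU14 (log2 difference -1.70 ± 0.25 SE, edgeR adjusted p = 0.0018). spn-E (-1.52 ± 0.28 SE, edgeR adjusted p = 0.0051), zpg (-1.72 ± 0.36 SE, edgeR adjusted p = 0.0090), krimp (-1.53 ± 0.36 SE, edgeR adjusted p = 0.015), bgcn (-1.36 ± 0.35 SE, edgeR adjusted p = 0.022) and aub (-1.02 ± 0.29 SE, edgeR adjusted p = 0.033) were called in the same direction. The threshold was missed for zpg without MU12 replicate 1, for krimp without MU12 replicate 2 or MU14 replicate 1, for bgcn without MU12 replicates 1 or 2 or MU14 replicates 1 or 3, for aub without MU12 replicate 2 or MU14 replicates 1 or 2, in limma-voom and with only the 5 libraries fitted (adjusted p from 0.051 to 0.17). The summed level of the list was 252 to 272 CPM in MU12 and 243 to 284 CPM in MU14, because tud, which other tissues also express, held most of it. The called germ line genes had the direction of Myc and of most called nucleolar and translation genes, and their part in those results was not tested.

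Haemocyte markers were mostly not called, and of them 0 of 9 tested members were higher in MU12 and 2 in MU14, with a median log2 difference of -0.76. Pxn, the basement membrane enzyme peroxidasin, had 14.6 and 17.9 CPM in MU12 and 33.8, 44.6 and 29.8 CPM in MU14 (log2 difference -1.15 ± 0.21 SE, edgeR adjusted p = 0.0049). He, hemese, had 1.64 and 1.98 CPM in MU12 and 4.10, 4.44 and 3.74 CPM in MU14 (log2 difference -1.18 ± 0.23 SE, edgeR adjusted p = 0.0067). The list summed to 55.2 to 90.7 CPM in MU12 and 86.7 to 101 CPM in MU14. The defining genes Hml and NimC1 were tested and not called. Of the salivary gland glue genes 0 of 7 tested members were higher in MU12 and 3 in MU14, with a median log2 difference of -1.35. For salivary gland, the counts in MU12 and MU14 were 0 and 0 without MU12 replicates 1 or 2. Their sum was 14.3 to 16.0 CPM in MU12 and 30.9 to 97.5 CPM in MU14, and ng1 and ng2 had no count in any of the 5 libraries. Sgs3 had 2.98 and 3.97 CPM in MU12 and 43.5, 10.5 and 16.4 CPM in MU14 (log2 difference -2.76 ± 0.65 SE, edgeR adjusted p = 0.015), while Sgs1 (-3.90 ± 0.81 SE, edgeR adjusted p = 0.012) and Sgs5 (-2.59 ± 0.69 SE, edgeR adjusted p = 0.024) went the same way. Significance was lost for Sgs3 and Sgs1 without MU12 replicates 1 or 2, for Sgs5 without MU12 replicates 1 or 2 or MU14 replicate 1 and in limma-voom (adjusted p from 0.051 to 0.13). The median with 1 library left out ranged from -1.20 (without MU12 replicate 2) to -0.50 (without MU12 replicate 1) for haemocyte and from -2.10 (without MU12 replicate 1) to -0.74 (without MU14 replicate 1) for salivary gland.

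Markers of other tissues were rare. Of midgut markers 1 of 4 tested members was higher in MU12 and 0 in MU14, with a median log2 difference of -0.38, and the called gene was the maltase Mal-A1 (0.775 and 0.543 CPM in MU12 and 0.0532, 0.0491 and 0.146 CPM in MU14). Of epidermis and cuticle markers 1 of 4 tested members was higher in MU12 and 0 in MU14, with a median log2 difference of 0.30. The called gene Lcp3 had 86 counts in MU12, nearly all in replicate 2, and 0 in MU14, so that it was at least 46.2-fold higher at a floor of 3 counts over the MU14 libraries. The Lcp3 call was lost without MU12 replicate 2 or any MU14 library, in limma-voom and with only the 5 libraries fitted (adjusted p from 0.053 to 0.097). Of Malpighian tubule markers 0 of 2 tested members were higher in MU12 and 1 in MU14, with a median log2 difference of -0.51. The called gene was Ncc69 (-1.001 ± 0.21 SE, edgeR adjusted p = 0.0094). The Ncc69 call was lost without MU12 replicate 1 (adjusted p = 0.056). No call was made in 5 further marker lists. Of muscle markers 0 of 12 tested members were higher in MU12 and 0 in MU14, with a median log2 difference of -0.29 (1 at an unadjusted edgeR p under 0.05, 0 in DESeq2 and 0 in limma-voom). Of markers of the nervous system 0 of 4 tested members were higher in MU12 and 0 in MU14, with a median log2 difference of 0.03 (-0.08 with upper-quartile scaling) (0 at an unadjusted edgeR p under 0.05, 0 in DESeq2 and 0 in limma-voom). For oenocytes 0 of 3 tested members were higher in MU12 and 0 in MU14, with a median log2 difference of -0.28 (0 at an unadjusted edgeR p under 0.05, 0 in DESeq2 and 0 in limma-voom). For imaginal discs and trachea 0 of 3 tested members were higher in MU12 and 0 in MU14, with a median log2 difference of -0.62 (1 at an unadjusted edgeR p under 0.05, 0 in DESeq2 and 0 in limma-voom). In the testis list 0 of 2 tested members were higher in MU12 and 0 in MU14, with a median log2 difference of -0.24 (0 at an unadjusted edgeR p under 0.05, 0 in DESeq2 and 0 in limma-voom). The muscle gene bt, for example, had 19.1 and 27.8 CPM in MU12 and 10.8, 18.6 and 16.8 CPM in MU14. The 6 prothoracic gland markers all fell under the filter on low counts, with a sum of 0.681 to 1.09 CPM in MU12 and 0.982 to 1.09 CPM in MU14. msl-2, the dosage compensation gene translated in males, was not called, with 7.07 and 7.96 CPM in MU12 and 7.21, 6.33 and 8.60 CPM in MU14. Of the 11 fat body markers 2 of 11 tested members were higher in MU12 and 1 in MU14, with a median log2 difference of 0.31, and the called genes were Lsp1gamma, Lsp2 and Fbp1. For midgut, the counts in MU12 and MU14 were 1 and 1 without MU14 replicate 3. For epidermis and cuticle, the counts in MU12 and MU14 were 0 and 0 without any MU14 library, in limma-voom and with only the 5 libraries fitted and 0 and 2 without MU12 replicate 2. For imaginal disc and trachea, the counts in MU12 and MU14 were 0 and 1 without MU12 replicate 1. For fat body markers, the counts in MU12 and MU14 were 4 and 1 in DESeq2, 3 and 2 without MU12 replicate 1 and 1 and 0 without MU12 replicate 2 or any MU14 library. Without 1 library the median ran from -0.80 (without MU12 replicate 2) to -0.03 (without MU14 replicate 2) for midgut, from -1.78 (without MU12 replicate 2) to 1.13 (without MU12 replicate 1) for epidermis and cuticle, from -0.64 (without MU12 replicate 2) to -0.04 (without MU12 replicate 1) for muscle, from -0.37 (without MU12 replicate 2) to 0.11 (without MU12 replicate 1) for nervous system, from -1.71 (without MU12 replicate 1) to 0.28 (without MU14 replicate 2) for oenocyte, from -1.03 (without MU12 replicate 1) to -0.34 (without MU12 replicate 2) for imaginal disc and trachea and from 0.06 (without MU12 replicate 2) to 0.72 (without MU12 replicate 1) for fat body markers.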

How the data were processed

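RNA was measured in pools of larval fat bodies, and the labels give 11 libraries from 5 strains. The authors mapped paired Illumina reads with NextGenMap to the FlyBase transcriptome, removed ambiguous pairs, and deposited whole-number counts per gene, summed over its transcripts and not normalised. Whether strand was used in counting is not given in the sources used here. Reads of all strains were mapped to 1 reference, and differences between strains in sequence or gene copy number were not analysed here. The deposited gene length column was not used.

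The counts were analysed in R 4.3.3 with edgeR 4.0.16. A filter at a mean of 15 counts across the 11 libraries kept 8415 of 13931 genes, library sizes were scaled by TMM, and a quasi-likelihood model with 1 coefficient per strain was fitted to all 11 libraries, so that they share 1 estimate of the spread. MU12 was tested against MU14 and p-values were adjusted by Benjamini and Hochberg over all tested genes, with a threshold of 0.05. CPM are counts scaled to a common, TMM-normalised library size. Alternatives were RLE and upper-quartile scaling, no filter, filterByExpr, DESeq2 1.42.0, limma-voom (limma 3.58.1), the 5 libraries alone, a replicate block and each library left out.

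The 5 libraries held 35780347 to 39878246 counts. A floor of 3 counts over a strain is 0.0378 CPM in MU12 and 0.0251 CPM in MU14. Counting intervals are exact binomial at 95%, and intervals and floors cover counting error only. Replicates are separate pools, and chi-square per degree of freedom between replicates was 57.7 to 62.6 in MU14 and 250 in MU12, so that no library was a copy of another. In counts simulated for this comparison with 8415 genes, the test recovered 44 of 100 genes with a 2-fold change and 79 of 100 with a 4-fold change, and 5 of its 128 calls were false. A far smaller share of genes was changed there than was called in the data, which makes the adjusted threshold stricter. The simulation was not split by abundance, and its recovery is not an estimate for the data.

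Positions and symbols come from the Release 6 annotation of the fly genome, matched for 13843 genes by FlyBase ID and 75 by CG number, with 13 unmatched. Of the gene list entries 8 had no match. The genes named are the 8 widest called differences in each direction whose higher strain averaged 10 CPM or more, the 10 widest among the 200 most abundant genes, up to 4 widest called members of each list (the 2 most abundant where none was called), and Myc, FASN1, Pfk and Glyp. Further genes and the lists of histones, amine genes, serpins, methuselah-like receptors and mitochondrial genome genes were added after their values were seen. The comparison, lists and genes were chosen with earlier results of these data known.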

Additional observations from a re-analysis of the deposited data

How the results depend on the processing

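The number of genes called between MU12 and MU14, 2234, was 2229 with RLE size factors, 2171 with upper-quartile scaling, 1997 without a filter on low counts, 2262 with filterByExpr, 2598 in DESeq2, 2154 in limma-voom and 1773 with only the 5 libraries fitted. With upper-quartile scaling the genes called higher in MU12 numbered 820 and the genes called higher in MU14 numbered 1351, against 1114 and 1120, and the median over all tested genes shifted from 0.02 to -0.09. With 1 library left out the calls ranged from 1355 (without MU12 replicate 2) to 1804 (without MU14 replicate 3), those higher in MU12 from 715 to 882, those higher in MU14 from 640 to 923, and those of at least 2-fold from 739 to 1062. Without a MU12 library the remaining one is assumed to vary like the other strains. The cause of the drop without MU12 replicate 2 or MU14 replicate 1 (1468 calls) was not tested. A replicate block gave 1667 calls. The replicate numbers did not pair the samples, since deviations from the strain means correlated at 0.123 for number 1 and -0.0516 for number 2, and number 3 had no partner. No called gene changed sign in any alternative. Of 3328 gene-by-alternative values for the 256 named genes, 2906 kept their side of the threshold, 412 lost the call, 10 gained it and 0 reversed, and 116 of the 220 called genes never lost it. Genes changed 2-fold were recovered in under 50% of cases in the simulation, which changed fewer genes than were called here and was not split by abundance. Genes not called are not shown to be equal.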

Other observations

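The following genes and lists were chosen after their values were seen and are given as values. Among histone genes, many of which are expressed in dividing or endoreplicating cells, 0 of 18 tested members were higher in MU12 and 12 in MU14 in this poly-A selected RNA. The median log2 difference was -1.15. The summed level of the list differed less, with 399 to 438 CPM in MU12 and 452 to 484 CPM in MU14. That sum was far above the levels of the members given below. The list has 115 members, most of them near-identical repeats that fell under the filter. His1:CG33864 had 0.282 and 0.190 CPM in MU12 and 2.18, 2.48 and 2.50 CPM in MU14 (log2 difference -3.31 ± 0.28 SE, edgeR adjusted p = 0.00014). His3:CG33833 had 0.235 and 0.299 CPM in MU12 and 1.81, 2.43 and 1.60 CPM in MU14 (log2 difference -2.86 ± 0.44 SE, edgeR adjusted p = 0.0023). His1:CG33804 (-2.61 ± 0.29 SE, edgeR adjusted p = 0.00064) was also lower, and His1:CG33825 had 2 counts in MU12 against 113 in MU14, a ratio of 37.5 with a 95% counting interval of 10.2 to 313.8. The strains were separated in each of these genes, and the germ line markers had the same direction. For histone genes, the counts in MU12 and MU14 were 0 and 8 without MU12 replicates 1 or 2.

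The methuselah-like receptors are a family of G protein-coupled receptors, and of them 2 of 11 tested members were higher in MU12 and 5 in MU14, with a median log2 difference of -0.60. mthl8 had 245 counts in MU12 and 0 in all 3 MU14 libraries, which made it at least 123.5-fold higher at a floor of 3 counts over the strain. mthl10, a receptor for growth-blocking peptides, had 5.49 and 9.94 CPM in MU12 and 45.4, 31.8 and 32.6 CPM in MU14 (log2 difference -2.25 ± 0.28 SE, edgeR adjusted p = 0.00090). mthl15 had 0.0939 and 0.0815 CPM in MU12 and 0.505, 0.737 and 0.729 CPM in MU14 (log2 difference -2.86 ± 0.39 SE, edgeR adjusted p = 0.0015). In the amine genes 0 of 7 tested members were higher in MU12 and 2 in MU14, with a median log2 difference of -0.84. Beside DAT, the called gene was Ddc, dopa decarboxylase, with 2.44 and 2.88 CPM in MU12 and 6.57, 7.73 and 5.27 CPM in MU14 (log2 difference -1.29 ± 0.22 SE, edgeR adjusted p = 0.0037). The octopamine receptor gene Octbeta2R was lower in MU12 (-2.15 ± 0.50 SE, edgeR adjusted p = 0.014). The Octbeta2R call was lost without MU12 replicates 1 or 2 (adjusted p from 0.065 to 0.072). When 1 library was left out the median ranged from -1.21 (without MU12 replicate 1) to -0.58 (without MU14 replicate 1) for methuselah-like receptors and from -1.41 (without MU12 replicate 1) to -0.32 (without MU12 replicate 2) for amine metabolism and transport.

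Serpins inhibit serine proteases, and of them 4 of 15 tested members were higher in MU12 and 0 in MU14, with a median log2 difference of 0.29. The called share is near the 26.5% over all genes. Spn42Dd had 157 and 119 CPM in MU12 and 19.3, 24.0 and 24.4 CPM in MU14 (log2 difference 2.61 ± 0.15 SE, edgeR adjusted p = 2.3e-05). Spn42Dc had 75.4 and 66.3 CPM in MU12 and 29.9, 31.3 and 30.2 CPM in MU14 (log2 difference 1.22 ± 0.09 SE, edgeR adjusted p = 8.7e-05). Spn42Db had 8.15 and 11.2 CPM in MU12 and 3.88, 5.03 and 4.86 CPM in MU14 (log2 difference 1.07 ± 0.16 SE, edgeR adjusted p = 0.0021), with no overlap of the strains. Spn43Ad was called as well (1.56 ± 0.49 SE, edgeR adjusted p = 0.047). The Spn43Ad call was lost without MU12 replicate 2 or any MU14 library, with upper-quartile scaling, in limma-voom and with only the 5 libraries fitted (adjusted p from 0.054 to 0.46). Across the fits without 1 library the median ran from -0.12 (without MU12 replicate 1) to 0.42 (without MU12 replicate 2) for serpins.

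Runs of at least 5 adjacent tested genes that were all called in 1 direction occurred 4 times. In MU14 they were the histone genes on chromosome 2L (21437011 to 21485209), a run on 2L (8997605 to 9166514) that holds the protease gene Try29F with 0.0704 and 0.0815 CPM in MU12 and 1.06, 0.982 and 1.09 CPM in MU14 (log2 difference -3.73 ± 0.46 SE, edgeR adjusted p = 0.00090), and the Hsp70B copies with Octbeta2R on 3R (12465453 to 12595725). In MU12 the run was on 3R (29735269 to 29747513) and held CG7601, CIA30, Gnpnat, Wdr24 and IntS11. Near-identical copies make up most of the histone and Hsp70 runs, so these genes are not independent.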
